A study of Mus musculus with 39 samples.

Results

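The genes described here are 42 genes of the cell cycle, taken by symbol from the female and the male gene count table of microglia from WT and 5XFAD mice kept under normoxia (NX) or chronic intermittent hypoxia (CIH). All 42 were found in both tables, among 46333 genes in the female and 54532 in the male table. CD11b-positive cells were isolated with magnetic beads, which also take other myeloid cells, from the cerebrum and their mRNA was sequenced, 1 library per labelled sample. Females were 10 and males 8 months old, and exposure began at 4 months of age. CIH cycled oxygen down to 6.5% at intervals of 90 s for 8 h per day as the labels state it, against 21% oxygen in NX; the study's text gives a slightly lower oxygen level and more hours per day. The groups held 4 libraries for F WT NX and 5 for each of F WT CIH, F 5XFAD NX, F 5XFAD CIH, M WT NX, M WT CIH, M 5XFAD NX and M 5XFAD CIH. 5XFAD mice carry mutant human transgenes of familial Alzheimer's disease and form amyloid plaques, and both genotypes came from a cross of C57BL/6J females with hemizygous 5XFAD males on a mixed B6SJL background. Sex, age, length of exposure and the gene table differed together, so the sexes were analysed separately and differences between them cannot be told apart from those of age.

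A dividing cell passes from G1 into DNA replication, then through G2 into mitosis. D-type cyclins with CDK4 and CDK6, then cyclin E with CDK2, release E2F factors from the retinoblastoma protein, and E2F factors switch on replication genes such as those of the MCM helicase. Genes of mitosis follow later, with cyclin B and CDK1 at their centre, and CDK inhibitors hold the cycle back. Adult microglia renew themselves slowly by division, and microglia are known to proliferate around amyloid plaques. Whether amyloid genotype, CIH or both shift these genes in isolated microglia was the question put to the tables.

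Promoters of the members on which the results turned are shown to let the shared motifs be seen. They run 300 bases, from 250 before to 50 after the start site, in the RefSeq table for GRCm38.p6. The 39 promoters used belong to 34 of the members, with none for Ccna2, Ccne2, Ccnd1, Ccnd2, Mcm4, Aurkb, Tpx2 and Stmn1. Any entry under a member's symbol on a chromosome where no member lies was left out of these, but not out of all promoters. Capitals mark the cell cycle genes homology region (CHR, TTTGAA or, as a variant, TTCGAA), the E2F motif (TTCCCGC, with TTGGCGC and also TTCGCGC and also TTGCCGC as variants) and the CCAAT box (CCAAT), each searched on both strands. Cdk1, Mki67, Top2a and Ube2c stand for the mitotic members, Mcm7 and Mcm5 for the helicase, and Cdkn2a for the inhibitors, with its downstream and then its upstream start site.
Cdk1 (chr10:69352863-69353162, minus strand): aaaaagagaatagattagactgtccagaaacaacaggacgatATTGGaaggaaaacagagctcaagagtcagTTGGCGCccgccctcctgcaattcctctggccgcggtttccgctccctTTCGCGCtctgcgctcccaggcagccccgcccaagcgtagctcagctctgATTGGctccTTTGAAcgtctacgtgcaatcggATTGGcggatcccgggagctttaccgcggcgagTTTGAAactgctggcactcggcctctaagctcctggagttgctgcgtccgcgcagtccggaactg
Mki67 (chr7:135716330-135716629, minus strand): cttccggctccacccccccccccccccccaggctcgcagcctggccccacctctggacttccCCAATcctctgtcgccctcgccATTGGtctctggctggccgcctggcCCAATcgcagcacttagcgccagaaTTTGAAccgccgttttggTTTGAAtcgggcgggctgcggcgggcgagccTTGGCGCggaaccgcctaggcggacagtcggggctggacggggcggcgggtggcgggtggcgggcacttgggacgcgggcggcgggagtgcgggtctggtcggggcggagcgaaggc
Top2a (chr11:99024140-99024439, minus strand): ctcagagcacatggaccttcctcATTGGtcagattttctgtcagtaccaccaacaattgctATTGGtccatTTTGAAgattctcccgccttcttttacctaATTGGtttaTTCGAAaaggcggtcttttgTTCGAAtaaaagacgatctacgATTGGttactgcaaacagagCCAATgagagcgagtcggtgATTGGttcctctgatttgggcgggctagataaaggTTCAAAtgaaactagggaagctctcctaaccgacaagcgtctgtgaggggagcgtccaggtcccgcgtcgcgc
Ube2c (chr2:164769679-164769978, plus strand): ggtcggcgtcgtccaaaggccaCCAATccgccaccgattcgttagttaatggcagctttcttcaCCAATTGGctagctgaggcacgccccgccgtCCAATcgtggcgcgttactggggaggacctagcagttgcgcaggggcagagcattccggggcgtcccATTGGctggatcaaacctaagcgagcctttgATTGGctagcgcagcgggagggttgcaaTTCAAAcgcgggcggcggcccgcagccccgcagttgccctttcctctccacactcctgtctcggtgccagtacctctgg
Mcm7 (chr5:138171834-138172133, minus strand): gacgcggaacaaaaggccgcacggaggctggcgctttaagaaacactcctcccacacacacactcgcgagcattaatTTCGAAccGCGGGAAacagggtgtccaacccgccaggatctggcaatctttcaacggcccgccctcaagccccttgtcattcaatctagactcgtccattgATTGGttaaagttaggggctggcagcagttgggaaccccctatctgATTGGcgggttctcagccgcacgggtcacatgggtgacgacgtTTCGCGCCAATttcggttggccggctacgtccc
Mcm5 (chr8:75109259-75109558, plus strand): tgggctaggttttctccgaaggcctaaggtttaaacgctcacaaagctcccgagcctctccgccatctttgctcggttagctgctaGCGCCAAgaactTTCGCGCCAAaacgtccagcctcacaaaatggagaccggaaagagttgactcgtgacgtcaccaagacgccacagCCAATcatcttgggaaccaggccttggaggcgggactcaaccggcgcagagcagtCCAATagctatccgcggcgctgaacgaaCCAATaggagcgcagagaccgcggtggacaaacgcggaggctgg
Cdkn2a (chr4:89282143-89282442, minus strand): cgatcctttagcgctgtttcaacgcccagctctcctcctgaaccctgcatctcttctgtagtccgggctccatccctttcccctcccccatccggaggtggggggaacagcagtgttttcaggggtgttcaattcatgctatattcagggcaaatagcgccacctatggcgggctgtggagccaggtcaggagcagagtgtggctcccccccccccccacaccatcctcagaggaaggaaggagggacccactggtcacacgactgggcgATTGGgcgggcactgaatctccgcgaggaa
Cdkn2a (chr4:89294570-89294869, minus strand): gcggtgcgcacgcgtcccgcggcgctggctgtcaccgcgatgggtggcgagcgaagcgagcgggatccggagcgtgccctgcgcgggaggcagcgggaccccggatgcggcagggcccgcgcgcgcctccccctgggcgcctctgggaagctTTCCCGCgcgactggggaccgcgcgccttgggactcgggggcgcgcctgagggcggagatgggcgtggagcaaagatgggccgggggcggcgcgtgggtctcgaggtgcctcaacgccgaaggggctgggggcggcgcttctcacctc

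A CHR match stood in 14 of the 39 member promoters (35.9%), against 19.2% of all 32851 RefSeq promoters of that length. An E2F match stood in 13 (33.3%, against 9.57%) and a CCAAT box in 28 (71.8%, against 37.4%). All 3 motifs stood together in 3 member promoters, those of Cdk1, Mki67 and Mcm7. Mcm6 had 5 E2F matches, Mcm3, Mcm5, Cdk2 and the printed Mcm7 promoter 3 each, and Top2a had 4 CHR matches and no E2F match. Neither Cdkn1a promoter held any of the motifs. Matches may overlap, as 9 pairs of them did in the member promoters, and a match is only a description of these letters.

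Total counts were 14731683 to 25906121 per female and 13457293 to 23095627 per male library. Levels are CPM, counts scaled to a common library total with TMM normalization, listed in ascending order for the libraries of a group. Differences are log2FC with the SE of edgeR's quasi-likelihood fit, positive where the second named group, or 5XFAD, was higher. A gene was called a DEG at an FDR below 0.05 with an absolute log2FC above 1, and "at FDR below 0.05" means without that limit. A CPM above 1 in at least 3 of the libraries compared was needed for a test, and all 42 members passed this in both genotype comparisons of females, in the male CIH one and in both 5XFAD comparisons of treatment. Ccne1 did not pass it in WT NX vs 5XFAD NX males, and neither Ccne1 nor Cdkn2a passed it in WT NX vs WT CIH of either sex. The labels number the samples of a group without saying that each is 1 animal, so the p-values measure the spread between labelled samples. In bulk samples, more cycling cells and more RNA per cycling cell cannot be told apart.

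Microglial markers were abundant in every library, and 2 female libraries stood apart. Over all libraries the microglial genes Csf1r, Cx3cr1, P2ry12 and Tmem119 lay at 6839.8 to 10590.1, 3049 to 6275, 1464 to 4834 and 926 to 3968 CPM. The library labelled F WT NX 1 was the highest of its group for 39 of 42 members, and for all 31 members that mark cycling cells (the 42 without Stmn1, the D-type cyclins, Cdk2, Cdk4, Cdk6 and the 4 inhibitors). Its 9 neutrophil and granulocyte precursor markers summed to 219 CPM, against 41.2 to 73.5 in the other 3. The library labelled F 5XFAD NX 4 was highest of its group for 12 of 14 members of mitosis, yet near WT for Cdk1, Cdkn1a, Cdkn2a and Pcna. Its neutrophil markers summed to 267 CPM against 10.1 to 60.5, and its Cspg4 and Gfap read 3.96 and 1.805 CPM where female WT libraries reached 5.83 and 1.51 and the other F 5XFAD NX libraries held at least 75.1 and 96.9. Female NX values for members given by library are followed by those without both of these libraries. That fit was added after the data were seen. F WT NX 1 was singled out in part by its high member values, so leaving it out raises 5XFAD against WT for those members. The values without both are therefore a description and no independent test.

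Other cell types that divide were followed by their markers. Of the 4 oligodendrocyte precursor markers, only Cspg4 was called higher in 5XFAD, and Pdgfra, Olig1 and Olig2 reached at most 2.697, 5.71 and 1.93 CPM in any library. The neuroblast genes Dcx, Sox11 and Igfbpl1 reached at most 0.879, 1.805 and 0.9896 CPM, while Nes lay at 5.68 to 24.7 CPM in WT and 14.7 to 45.7 CPM in 5XFAD females, and 5.91 to 12.97 and 18.5 to 46.1 CPM in males. Elane and Mpo, which mark granulocyte precursors, reached 9.33 and 15.3 CPM in M 5XFAD NX 2 and stayed at or below 7.78 and 5.38 CPM elsewhere. Neutrophil markers summed to 238 to 1227 CPM in M WT NX, 109 to 328 in M WT CIH, 69.8 to 1299 in M 5XFAD NX and 55.4 to 207 in M 5XFAD CIH. Markers of several other cell types also differed between the genotypes. P2ry12 lay at 2825 to 3967 CPM in WT and 1464 to 2664 CPM in 5XFAD females, and 3279 to 4834 and 1504 to 1964 CPM in males, and Tmem119 at 2524 to 2973 CPM in WT and 926 to 1926 CPM in 5XFAD females, and 2213 to 3968 and 959 to 2229.9 CPM in males. The 5 border macrophage markers summed to 112 to 250.3 CPM in WT and 49.8 to 123 CPM in 5XFAD females, and 113 to 247 and 72.7 to 142 CPM in males, with 5, 4, 4 and 1 called lower in the NX female, CIH female, NX male and CIH male comparisons. The 4 astrocyte markers, of which Gfap was at 0 in 1 library, summed to 152 to 181 CPM in WT and 124 to 541 CPM in 5XFAD females, and 125 to 179 and 205 to 887 CPM in males, with 1, 2, 2 and 1 called higher. The 5 endothelial markers summed to 44.1 to 125 CPM in WT and 50.6 to 275 CPM in 5XFAD females, and 48.8 to 182 and 106 to 216 CPM in males, with 1 called higher and 1 lower in each. The 4 oligodendrocyte markers summed to 54.2 to 214 CPM in WT and 79.98 to 336 CPM in 5XFAD females, and 72.04 to 169 and 151 to 446 CPM in males, with 0, 1, 3 and 2 called higher. The 6 lymphocyte markers summed to 0.521 to 2.21 CPM in WT and 0.517 to 6.42 CPM in 5XFAD females, and 1.37 to 6.98 and 2.32 to 14.1 CPM in males. In CIH males they summed to 1.37 to 3.44 CPM in WT and 7.08 to 8.84 CPM in 5XFAD, with 3 of the 4 tested called higher, and Cd3e, Cd3g, Trbc2 and Ms4a1 were each at 0 in some libraries. The part of these markers in the results was not tested.

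**Figure D1:**
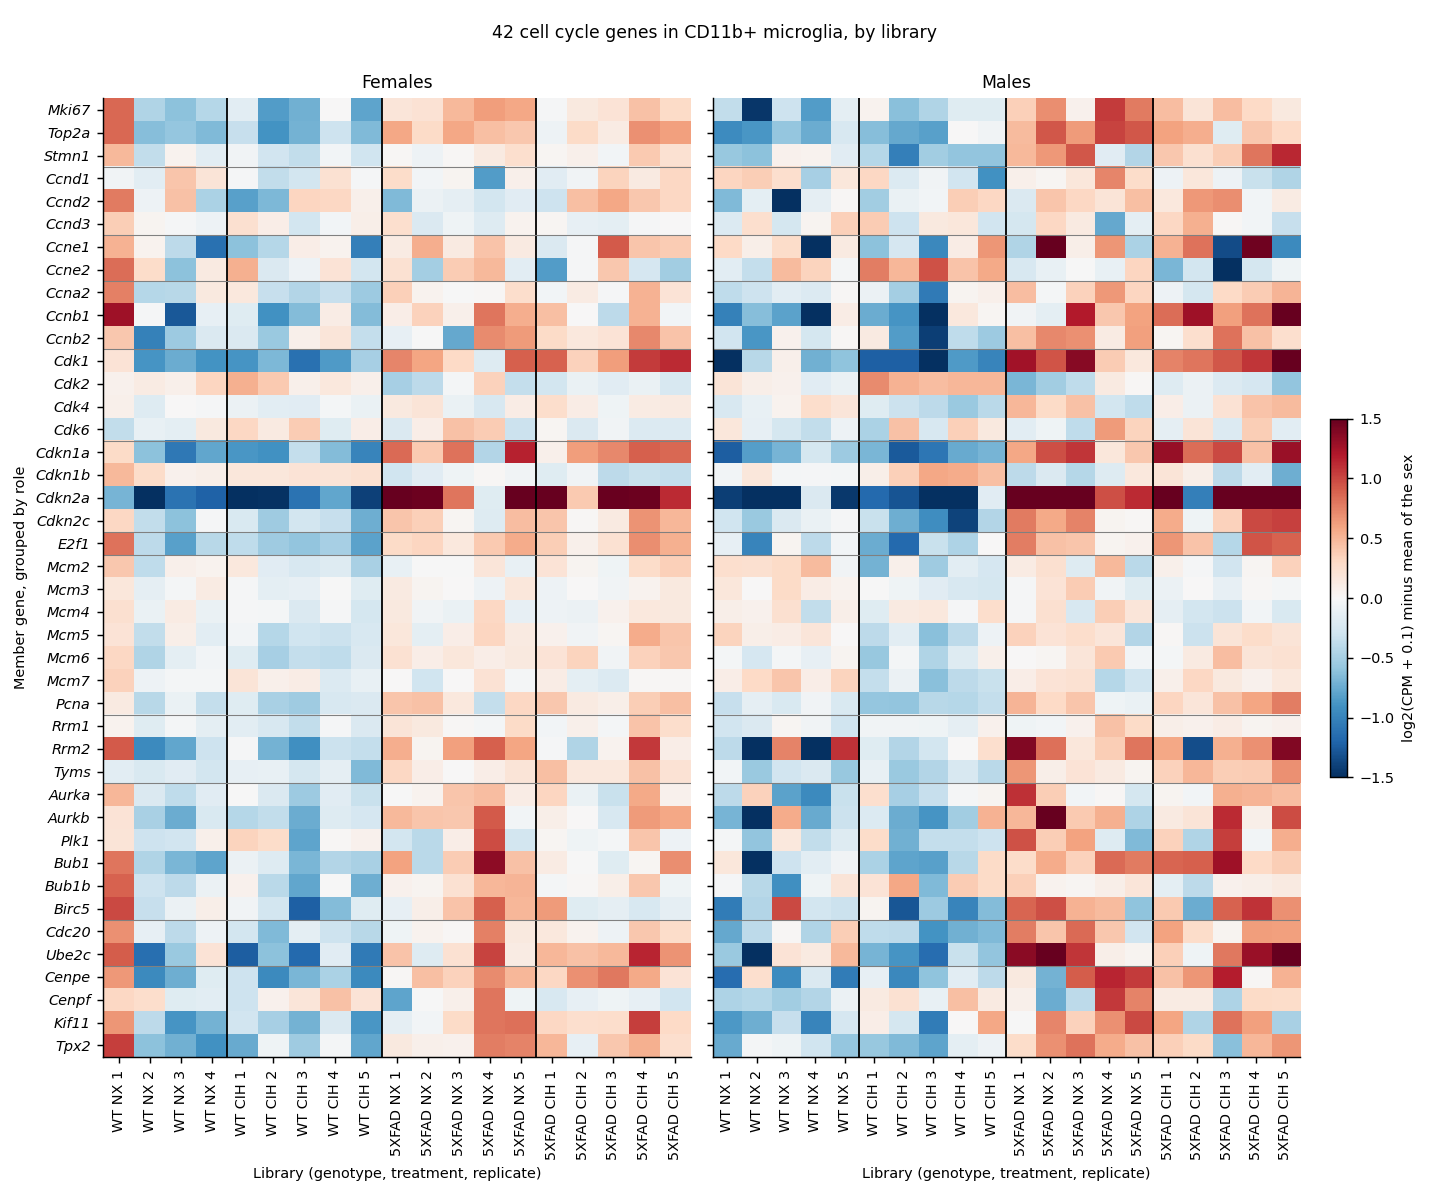
Heat map of the 42 members (rows, grouped by role) in the 19 female and 20 male libraries (columns, by group), coloured by log2(CPM + 0.1) minus the mean over the libraries of that sex, with values beyond 1.5 drawn at the end colour. Cdkn2a, Cdkn1a and Cdk1 divide the genotypes most, and F WT NX 1 is red for most members among blue WT libraries.

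Levels between genes are given per length, as FPKM. Pcna, the sliding clamp of DNA polymerase, was the highest member at a mean of 61.7 (46.001 to 75.7) FPKM in females and 37.6 (24.01 to 60.9) FPKM in males. Cdk4, a G1 kinase, was next at 50.6 (45.4 to 56.3) and 27.9 (18.6 to 37.9) FPKM, and the ranges of these neighbours overlapped. Mki67, the standard mark of cycling cells, averaged 1.99 (1.15 to 3.62) and 1.34 (0.448 to 2.62) FPKM, and Cdk1 1.47 (0.648 to 2.65) and 1.98 (0.4202 to 5.06) FPKM. Among the mitotic kinase and checkpoint genes the highest was Plk1, at 1.85 (1.09 to 4.11) and 2.06 (1.15 to 4.01) FPKM.

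In 5XFAD, cycling genes such as Cdk1, Ube2c, Cenpe and Kif11 and the CDK inhibitors Cdkn2a, Cdkn1a and Cdkn2c were called higher in at least 1 comparison, and Ccne2 alone was called lower. CIH within a genotype called no member. In WT CIH vs 5XFAD CIH males, 12 of 42 members were called higher and 1 lower, where 18.7% of all genes tested were called, 11.8% higher and 6.88% lower. The female CIH comparison called 6 of 42 higher and none lower, against 13% of all genes (8.83% higher and 4.12% lower). In WT NX vs 5XFAD NX males, 6 of 41 were called higher and none lower, against 8.25% (5.94% and 2.31%). The female NX comparison called 2 of 42 higher and none lower, against 5.99% (4.4% and 1.59%). Across all comparisons 16 members were called at least once and 32 reached FDR below 0.05 at least once. The matching shares of all genes were not counted. In CIH females alone 51.9% of all genes reached that FDR, so these 2 counts are not particular to the members. Cdk1 and Cdkn2a were called in all 4 genotype comparisons, and Cdkn1a in 3 of them. The members called were 4.76% of those tested in NX females and 14.3% in CIH females, both close to the shares of all genes, and 14.6% in NX males and 31% in CIH males. Cdkn2a counts in all 4, although it entered these tests through its 5XFAD libraries. Scaled by library size alone, the calls in CIH males were 5 higher and 2 lower, against 7.75% higher and 17.1% lower of all genes.

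Without a limit on size, 23 members were higher and 3 lower at FDR below 0.05 in CIH females, where 51.9% of all genes reached it, 26.2% higher and 25.7% lower. In CIH males 22 were higher and 3 lower, against 49% of all genes (25.3% and 23.7%). In NX males 10 of 41 were higher and none lower, against 17.8% (10.4% and 7.37%), and in NX females 3 of 42 and none, against 13.9% (7.26% and 6.61%). The NX male count rests in part on M 5XFAD NX 3, without which Cdkn2c, Pcna, Tyms and Tpx2 lost that FDR. The median log2FC of the members was 0.21 and 0.52 in NX and CIH females and 0.60 and 0.62 in NX and CIH males, against −0.02, −0.018, 0.023 and −0.06 over all genes tested. The NX female median depends on 2 libraries, F WT NX 1, the highest of its group for 39 of 42 members, and F 5XFAD NX 4, the highest for 21. Scaling by library size alone moved these all-gene medians to −0.17, −0.21, −0.16 and −0.43. Member log2FC fell as well, in NX females from 1.02 to 0.84 for Cdk1 and from 2.63 to 2.43 for Cdkn2a. The member medians above are those with TMM, and are not to be set against these shifted values. With library size alone, the members at FDR below 0.05 numbered 15 higher and 6 lower in CIH females, against all-gene shares of 17.5% higher and 42.2% lower. In CIH males they then numbered 12 higher and 6 lower, against 14.9% higher and 46% lower of all genes. In NX males there were 6 higher and 1 lower, against 7.25% higher and 14.7% lower of all genes. None of the 72 member results at FDR below 0.05 changed sign with that scaling.

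**Figure D2:**
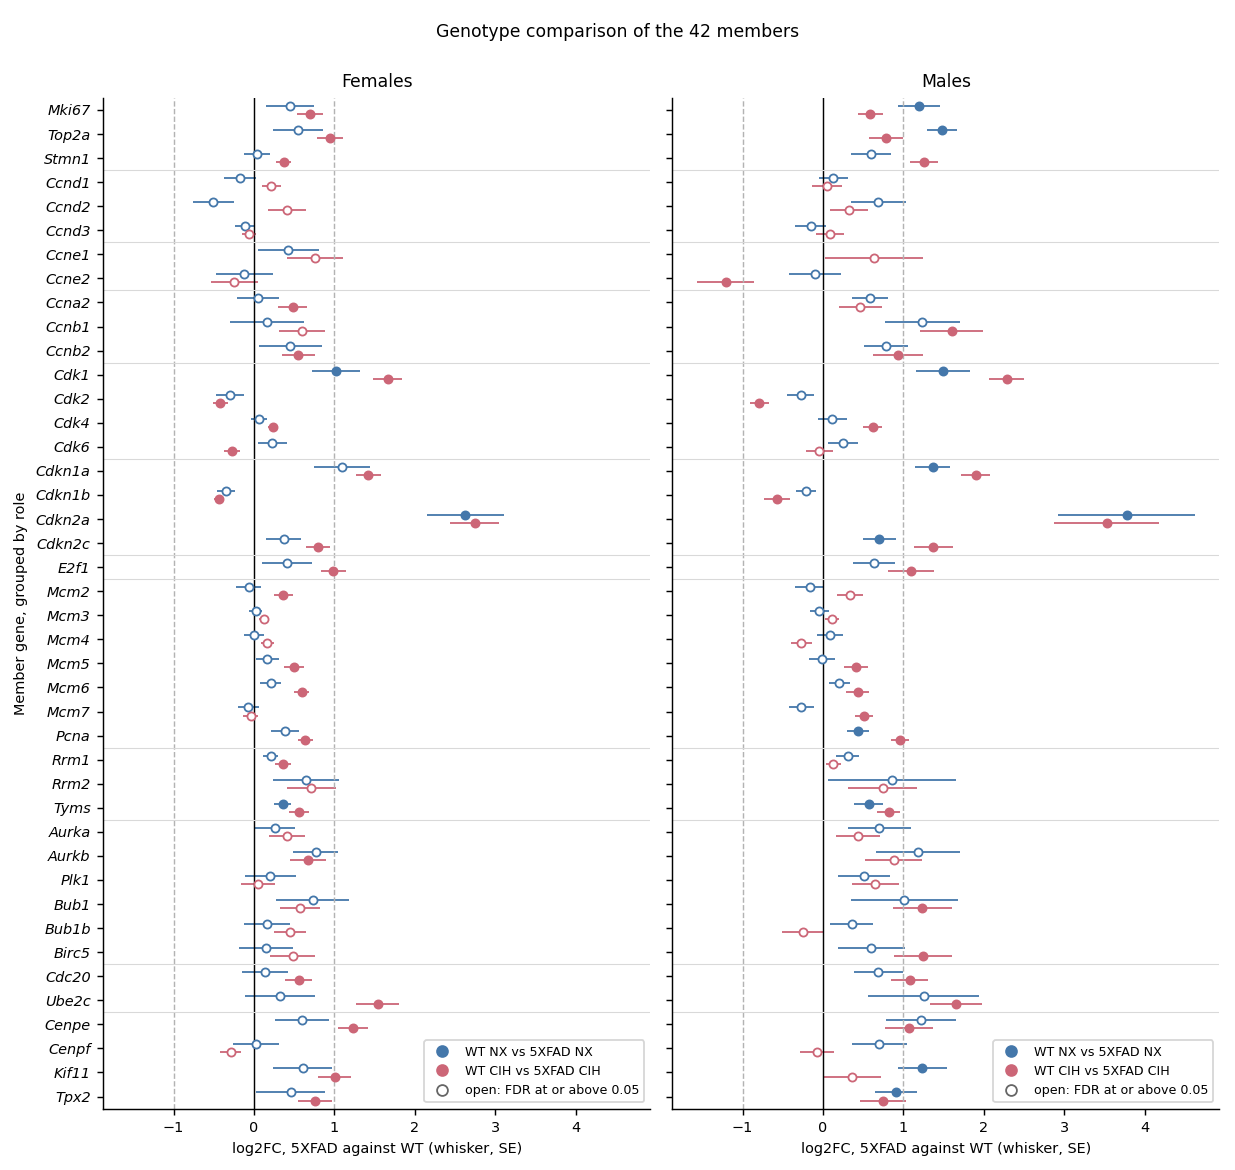
log2FC of 5XFAD against WT for each of the 42 members, in females and males under NX (blue) and CIH (red), with whiskers of 1 SE and dashed lines at an absolute log2FC of 1. Filled points reached FDR below 0.05, and Cdkn2a lies farthest right in both sexes.

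Calls in the female NX comparison changed with the 2 libraries that stood apart. Since F WT NX 1 was picked out in part by high member values, higher log2FC without it follows in part from that choice. Without F WT NX 1, 7 members were called higher (Cdk1, Cdkn1a, Cdkn2a, Cenpe, Rrm2, Top2a and Tpx2), where 2.85% of all genes tested were, and without F 5XFAD NX 4, 3 were (Cdk1, Cdkn1a and Cdkn2a), where 7.16% of all genes were. Without both, Cdk1 (log2FC 1.502, FDR = 2.21e-04), Cdkn1a (log2FC 1.63, FDR = 1.05e-04), Cdkn2a (log2FC 3.11, FDR = 2.07e-04), Rrm2 (log2FC 1.17, FDR = 0.00892), Top2a (log2FC 1.09, FDR = 1.34e-04) and Tpx2 (log2FC 1.05, FDR = 0.00769) were called, and 17 members were higher and 2 lower at FDR below 0.05. Of all genes, 8.48% were then called higher and 6.36% lower, and 22.7% and 22.4% were higher and lower at FDR below 0.05. Mki67 then reached log2FC 0.87, FDR = 5.25e-04.

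Mki67 (chr7:135689784-135716361 in GRCm38) and Top2a (chr11:98992943-99024189 in GRCm38), the proliferation antigen and the DNA topoisomerase of dividing cells, were higher in 5XFAD, as calls in NX males and at FDR below 0.05 in both CIH comparisons. Mki67 in NX females was 11.99, 13.4, 13.7 and 33.7 CPM in WT and 20.98, 21.4, 25.8, 27.6 and 28.6 CPM in 5XFAD. Mki67 in CIH females was 10.3, 10.6, 11.2, 16.5 and 18.5 CPM in WT and 18.2, 20.5, 21.3, 22.5 and 25.05 CPM in 5XFAD. For Mki67 in females, the genotypes overlapped under both NX (log2FC 0.45 ± 0.30, FDR = 0.307, or log2FC 0.87, FDR = 5.25e-04 without both) and CIH (log2FC 0.70 ± 0.16, FDR = 0.00264). Mki67 in NX males was 4.53, 7.05, 9.75, 10.1 and 11.4 CPM in WT and 13.2, 16.2, 20.6, 21.7 and 26.2 CPM in 5XFAD. Mki67 in CIH males was 8.13, 9.18, 11.1, 11.1 and 13.1 CPM in WT and 14.01, 14.5, 15.6, 17.4 and 17.4 CPM in 5XFAD. For Mki67 in males, every 5XFAD library was above every WT library under both NX (log2FC 1.19 ± 0.26, FDR = 0.00641) and CIH (log2FC 0.59 ± 0.15, FDR = 0.00529). Top2a in NX females was 7.37, 7.47, 7.79 and 21.4 CPM in WT and 14.3, 15.5, 15.9, 17.5 and 17.6 CPM in 5XFAD. Top2a in CIH females was 6.24, 7.08, 7.32, 9.17 and 9.42 CPM in WT and 11.1, 12.8, 14.2, 17.9 and 18.9 CPM in 5XFAD. For Top2a in females, the genotypes overlapped under NX (log2FC 0.55 ± 0.31, FDR = 0.244, or log2FC 1.09, FDR = 1.34e-04 without both), while every 5XFAD library was above every WT library under CIH (log2FC 0.95 ± 0.16, FDR = 2.92e-04). Top2a in NX males was 4.72, 4.95, 5.44, 6.07 and 7.69 CPM in WT and 12.7, 14.2, 17.5, 17.6 and 18.6 CPM in 5XFAD. Top2a in CIH males was 5.13, 5.32, 5.82, 8.78 and 9.15 CPM in WT and 8.02, 11.3, 12.1, 13.4 and 13.98 CPM in 5XFAD. For Top2a in males, every 5XFAD library was above every WT library under NX (log2FC 1.48 ± 0.19, FDR = 1.44e-04), while the genotypes overlapped under CIH (log2FC 0.79 ± 0.22, FDR = 0.00761). Stmn1, a tubulin-binding protein abundant in dividing cells, was called in CIH males and in no other comparison. Stmn1 in NX females was 15.5, 17.9, 20.6 and 28.04 CPM in WT and 18.9, 20.2, 20.2, 21.9 and 23.7 CPM in 5XFAD. Stmn1 in CIH females was 15.4, 16.2, 16.3, 19.2 and 19.4 CPM in WT and 19.3, 20.3, 21.1, 23.5 and 26.2 CPM in 5XFAD. For Stmn1 in females, the genotypes overlapped under both NX (log2FC 0.033 ± 0.16, FDR = 0.902, or log2FC 0.19, FDR = 0.239 without both) and CIH (log2FC 0.37 ± 0.10, FDR = 0.00724). Stmn1 in NX males was 15.4, 15.9, 21.1, 24.5 and 24.9 CPM in WT and 17.4, 21.03, 33.1, 37.1 and 45.2 CPM in 5XFAD. Stmn1 in CIH males was 11.6, 15.7, 15.7, 16.4 and 17.6 CPM in WT and 27.9, 30.6, 31.4, 41.5 and 51.9 CPM in 5XFAD. For Stmn1 in males, the genotypes overlapped under NX (log2FC 0.59 ± 0.25, FDR = 0.132), while every 5XFAD library was above every WT library under CIH (log2FC 1.26 ± 0.17, FDR = 3.78e-05).

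**Figure D3:**
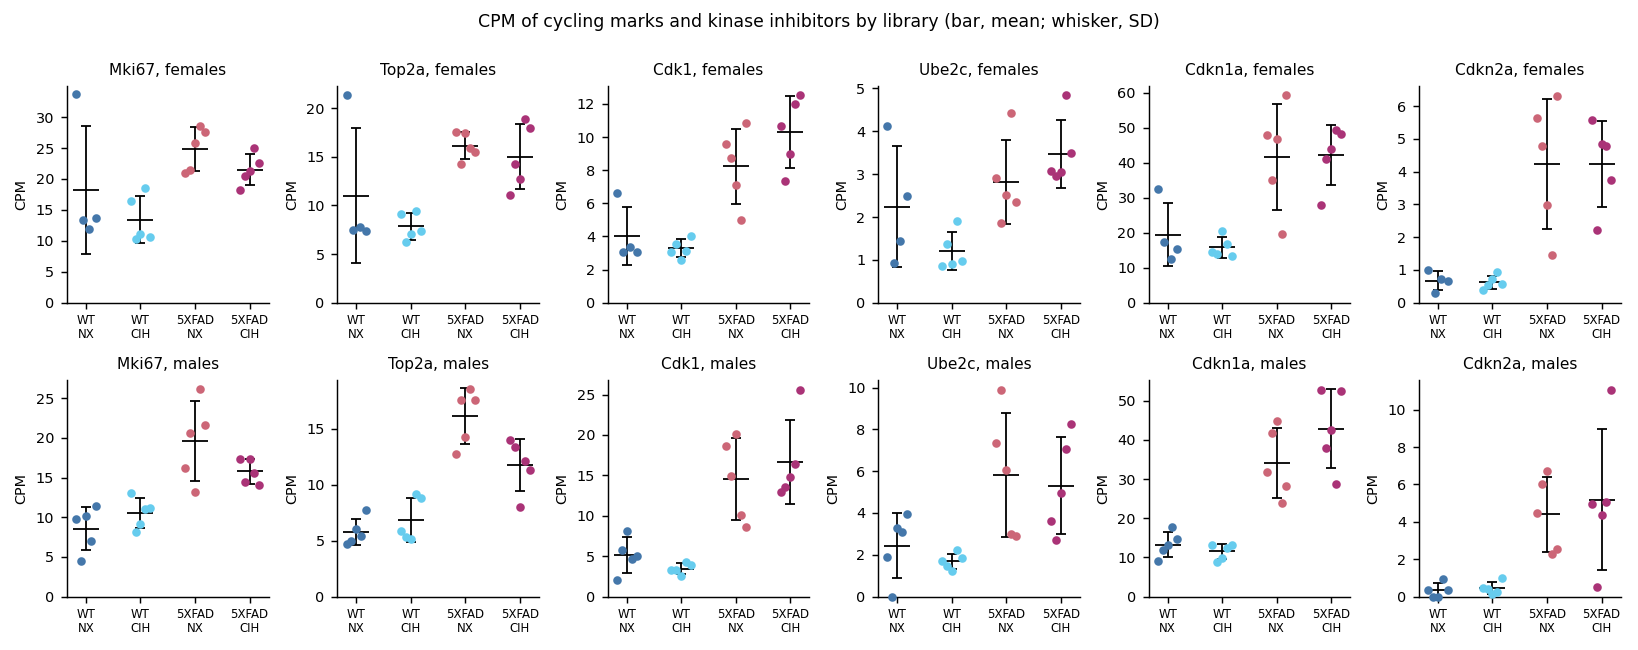
CPM of Mki67, Top2a, Cdk1, Ube2c, Cdkn1a and Cdkn2a in every library (points) of the 4 groups, females above and males below, with the group mean (bar) and SD (whisker) and axes from 0. The single high WT NX point for Mki67 and Top2a in females is F WT NX 1.

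D-type cyclins, the growth-signal sensors of G1, did not reach FDR below 0.05 in any comparison. Ccnd1, the most abundant of them, is given in full. Ccnd1 in NX females was 83.95, 90.5, 108 and 126 CPM in WT and 52.4, 91.1, 96.5, 99.1 and 114 CPM in 5XFAD. Ccnd1 in CIH females was 73.1, 77.6, 92.8, 93.04 and 109.8 CPM in WT and 83.3, 90.5, 103, 117 and 119 CPM in 5XFAD. For Ccnd1 in females, the genotypes overlapped under both NX (log2FC −0.17 ± 0.20, FDR = 0.568, or log2FC −0.092, FDR = 0.597 without both) and CIH (log2FC 0.21 ± 0.12, FDR = 0.149). Ccnd1 in NX males was 39.7, 62.8, 66.4, 69.7 and 72.1 CPM in WT and 56.9, 58.7, 63.1, 67.4 and 92.8 CPM in 5XFAD. Ccnd1 in CIH males was 29.7, 45.9, 48.6, 54.03 and 69.4 CPM in WT and 40.7, 44.5, 53.01, 53.1 and 62.997 CPM in 5XFAD. For Ccnd1 in males, the genotypes overlapped under both NX (log2FC 0.13 ± 0.18, FDR = 0.707) and CIH (log2FC 0.048 ± 0.19, FDR = 0.851). Ccnd2 ranged over 4.16 to 12.8 CPM in females and 1.26 to 7.72 CPM in males, and Ccnd3 over 29.3 to 45.98 CPM in females and 28.3 to 69.9 CPM in males. Of the E-type cyclins, which activate CDK2 at the start of replication, Ccne1 was at 0.333 to 1.67 CPM in females and 0.134 to 2.6996 CPM in males. Ccne2 was the only member called lower in 5XFAD, in CIH males. Ccne2 in NX females was 0.922, 1.61, 1.796 and 2.68 CPM in WT and 0.999, 1.299, 1.73, 1.93 and 2.096 CPM in 5XFAD. Ccne2 in CIH females was 1.19, 1.25, 1.38, 1.698 and 2.16 CPM in WT and 0.7703, 0.986, 1.21, 1.45 and 1.97 CPM in 5XFAD. For Ccne2 in females, the genotypes overlapped under both NX (log2FC −0.12 ± 0.35, FDR = 0.831, or log2FC 0.043, FDR = 0.931 without both) and CIH (log2FC −0.24 ± 0.29, FDR = 0.514). Ccne2 in NX males was 1.67, 1.93, 2.12, 2.75 and 3.06 CPM in WT and 1.82, 1.997, 2.01, 2.17 and 2.74 CPM in 5XFAD. Ccne2 in CIH males was 2.95, 3.11, 3.27, 3.75 and 4.299 CPM in WT and 0.4499, 1.31, 1.77, 1.79 and 2.08 CPM in 5XFAD. For Ccne2 in males, the genotypes overlapped under NX (log2FC −0.10 ± 0.33, FDR = 0.885), while every 5XFAD library was below every WT library under CIH (log2FC −1.21 ± 0.35, FDR = 0.0114). The Ccne2 call was lost without M 5XFAD CIH 3, whose level was the lowest (log2FC −0.98, FDR = 0.0125). Ccne2 shares exonic sequence with the antisense gene Ints8, whose reads could not be told apart where counting ignored strand.

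Cyclins A and B, the partners of CDK1 and CDK2 in late S phase and mitosis, each reached FDR below 0.05 in at least 1 CIH comparison, higher in 5XFAD. Ccnb1 was called in CIH males. Ccnb1 in NX females was 0.666, 1.61, 1.74 and 4.37 CPM in WT and 1.86, 1.89, 2.26, 2.597 and 3.14 CPM in 5XFAD. Ccnb1 in CIH females was 0.891, 1.08, 1.08, 1.54 and 1.904 CPM in WT and 1.31, 1.71, 1.76, 2.44 and 2.56 CPM in 5XFAD. For Ccnb1 in females, the genotypes overlapped under both NX (log2FC 0.16 ± 0.46, FDR = 0.832, or log2FC 0.68, FDR = 0.14 without both) and CIH (log2FC 0.60 ± 0.28, FDR = 0.0931). Ccnb1 in NX males was 0.4698, 0.761, 0.897, 1.01 and 1.78 CPM in WT and 1.47, 1.57, 2.196, 2.53 and 3.87 CPM in 5XFAD. Ccnb1 in CIH males was 0.449, 0.838, 0.938, 1.66 and 1.84 CPM in WT and 2.55, 2.95, 3.01, 4.11 and 4.87 CPM in 5XFAD. For Ccnb1 in males, the genotypes overlapped under NX (log2FC 1.23 ± 0.47, FDR = 0.0901), while every 5XFAD library was above every WT library under CIH (log2FC 1.60 ± 0.39, FDR = 0.00357). Ccnb2 and Ccna2 reached FDR below 0.05 at smaller sizes. Ccnb2 in NX females was 1.27, 1.79, 2.27 and 3.56 CPM in WT and 1.53, 2.43, 2.66, 4.205 and 4.42 CPM in 5XFAD. Ccnb2 in CIH females was 1.78, 2.06, 2.28, 2.82 and 3.04 CPM in WT and 2.999, 3.101, 3.27, 3.61 and 4.44 CPM in 5XFAD. For Ccnb2 in females, the genotypes overlapped under both NX (log2FC 0.45 ± 0.39, FDR = 0.431, or log2FC 0.59, FDR = 0.212 without both) and CIH (log2FC 0.55 ± 0.20, FDR = 0.034). Ccnb2 in NX males was 1.73, 2.64, 2.68, 3.27 and 3.38 CPM in WT and 3.53, 4.46, 4.997, 5.26 and 5.399 CPM in 5XFAD. Ccnb2 in CIH males was 1.16, 1.77, 2.18, 2.47 and 3.57 CPM in WT and 3.32, 3.89, 3.89, 4.42 and 5.77 CPM in 5XFAD. For Ccnb2 in males, every 5XFAD library was above every WT library under NX (log2FC 0.78 ± 0.27, FDR = 0.0675), while the genotypes overlapped under CIH (log2FC 0.94 ± 0.31, FDR = 0.0218). Ccna2 in NX females was 3.24, 3.28, 4.88 and 7.497 CPM in WT and 4.38, 4.48, 4.597, 5.32 and 5.68 CPM in 5XFAD. Ccna2 in CIH females was 2.99, 3.24, 3.45, 3.45 and 4.95 CPM in WT and 4.301, 4.35, 4.81, 5.13 and 6.396 CPM in 5XFAD. For Ccna2 in females, the genotypes overlapped under both NX (log2FC 0.048 ± 0.26, FDR = 0.912, or log2FC 0.38, FDR = 0.175 without both) and CIH (log2FC 0.48 ± 0.18, FDR = 0.0374). Ccna2 in NX males was 3.25, 3.3999, 3.69, 3.79 and 4.304 CPM in WT and 4.17, 5.35, 5.42, 5.91 and 6.72 CPM in 5XFAD. Ccna2 in CIH males was 1.99, 2.96, 4.004, 4.37 and 4.48 CPM in WT and 3.54, 4.02, 5.25, 5.58 and 6.098 CPM in 5XFAD. For Ccna2 in males, the genotypes overlapped under both NX (log2FC 0.58 ± 0.23, FDR = 0.1) and CIH (log2FC 0.46 ± 0.27, FDR = 0.166). Ccna2 shares exonic sequence with Exosc9 on the other strand. Leaving out 1 library took Ccna2 to or above an FDR of 0.05 in 7 of 10 fits, with F 5XFAD CIH 2, 4 or 5 or F WT CIH 2, 3, 4 or 5 left out (highest FDR = 0.104). Ccnb2 in females did so in 5 (without F 5XFAD CIH 4 or 5 or F WT CIH 1, 2 or 5, highest FDR = 0.0907) and in males in 3 (without M 5XFAD CIH 3 or M WT CIH 2 or 3, highest FDR = 0.0606).

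Cdk1 (chr10:69335146-69352938 in GRCm38), the kinase that drives mitosis, was called higher in 5XFAD in every genotype comparison, though not in every fit of NX females. Cdk1 in NX females was 3.05, 3.07, 3.38 and 6.62 CPM in WT and 5.01, 7.11, 8.73, 9.57 and 10.8 CPM in 5XFAD. Cdk1 in CIH females was 2.58, 3.07, 3.14, 3.56 and 4.02 CPM in WT and 7.34, 8.94, 10.7, 11.98 and 12.6 CPM in 5XFAD. For Cdk1 in females, the genotypes overlapped under NX (log2FC 1.02 ± 0.30, FDR = 0.0491, or log2FC 1.502, FDR = 2.21e-04 without both), while every 5XFAD library was above every WT library under CIH (log2FC 1.66 ± 0.18, FDR = 4.57e-06). Cdk1 in NX males was 2.08, 4.63, 5.05, 5.79 and 8.15 CPM in WT and 8.66, 10.1, 14.96, 18.7 and 20.1 CPM in 5XFAD. Cdk1 in CIH males was 2.503, 3.25, 3.25, 3.85 and 4.26 CPM in WT and 12.97, 13.6, 14.8, 16.4 and 25.6 CPM in 5XFAD. For Cdk1 in males, every 5XFAD library was above every WT library under both NX (log2FC 1.49 ± 0.34, FDR = 0.00845) and CIH (log2FC 2.28 ± 0.22, FDR = 1.11e-06). The female NX call for Cdk1 held without F WT NX 1 (log2FC 1.38, FDR = 0.0374) and without F 5XFAD NX 4 (log2FC 1.14, FDR = 0.00699), but was lost without any 1 of F WT NX 2, 3 or 4 or F 5XFAD NX 1, 2, 3 or 5, where log2FC lay between 0.91 and 1.10 and FDR between 0.0778 and 0.125. It was also lost with library size alone as the scale (log2FC 0.84, FDR = 0.0707) and with limma on FPKM (log2FC 0.84, FDR = 0.0524).

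The kinases of G1 and S phase did not all move one way. Cdk2, the partner of cyclins E and A, was lower in 5XFAD under CIH in both sexes. Cdk2 in NX females was 39.1, 39.2, 40.4 and 46.4 CPM in WT and 26.3, 28.2, 29.001, 36.5 and 47.3 CPM in 5XFAD. Cdk2 in CIH females was 39.2, 39.3, 41.6, 48.9 and 53.9 CPM in WT and 30.8, 31.6, 32.98, 34.8 and 34.9 CPM in 5XFAD. For Cdk2 in females, the genotypes overlapped under NX (log2FC −0.29 ± 0.17, FDR = 0.255, or log2FC −0.50, FDR = 0.00744 without both), while every 5XFAD library was below every WT library under CIH (log2FC −0.42 ± 0.091, FDR = 0.00185). Cdk2 in NX males was 29.5, 30.99, 34.7, 35.3 and 38.02 CPM in WT and 20.6, 23.1, 25.4, 33.6 and 36.3 CPM in 5XFAD. Cdk2 in CIH males was 45.7, 46.95, 47.03, 47.5 and 54.2 CPM in WT and 21.9, 27.9, 28.8, 29.04 and 31.1 CPM in 5XFAD. For Cdk2 in males, the genotypes overlapped under NX (log2FC −0.28 ± 0.17, FDR = 0.313), while every 5XFAD library was below every WT library under CIH (log2FC −0.79 ± 0.11, FDR = 5.08e-05). Cdk4, the partner of D-type cyclins, was higher in 5XFAD under CIH in both sexes. Cdk4 in NX females was 57.7, 65.04, 65.99 and 69.4 CPM in WT and 55.8, 61.2, 70.99, 72.95 and 75.3 CPM in 5XFAD. Cdk4 in CIH females was 58.4, 58.98, 61.4, 61.997 and 64.6 CPM in WT and 62.7, 71.1, 71.6, 72.1 and 78.8 CPM in 5XFAD. For Cdk4 in females, the genotypes overlapped under both NX (log2FC 0.061 ± 0.10, FDR = 0.689, or log2FC 0.14, FDR = 0.225 without both) and CIH (log2FC 0.24 ± 0.063, FDR = 0.00626). Cdk4 in NX males was 75.996, 82.97, 92.8, 102 and 107 CPM in WT and 68.5, 73.9, 109, 121 and 126 CPM in 5XFAD. Cdk4 in CIH males was 60.9, 67.6, 68.3, 71.6 and 78.7 CPM in WT and 84.3, 95.7, 104, 121 and 125 CPM in 5XFAD. For Cdk4 in males, the genotypes overlapped under NX (log2FC 0.12 ± 0.18, FDR = 0.738), while every 5XFAD library was above every WT library under CIH (log2FC 0.62 ± 0.11, FDR = 5.02e-04). Cdk6, its close relative, was lower in CIH females at a small size. Cdk6 in NX females was 79.8, 93.4, 95.9 and 114 CPM in WT and 82.98, 88.7, 111, 135 and 141 CPM in 5XFAD. Cdk6 in CIH females was 91.3, 111, 114, 128 and 135 CPM in WT and 89.2, 89.5, 89.7, 99.9 and 106 CPM in 5XFAD. For Cdk6 in females, the genotypes overlapped under both NX (log2FC 0.23 ± 0.18, FDR = 0.385, or log2FC 0.054, FDR = 0.817 without both) and CIH (log2FC −0.27 ± 0.10, FDR = 0.0305). Cdk6 in NX males was 61.3, 65.8, 72.9, 75.2 and 88.7 CPM in WT and 60.5, 71.2, 75.5, 99.7 and 124 CPM in 5XFAD. Cdk6 in CIH males was 57.1, 66.9, 87.3, 101 and 108 CPM in WT and 68.5, 70.97, 72.3, 90.5 and 102 CPM in 5XFAD. For Cdk6 in males, the genotypes overlapped under both NX (log2FC 0.25 ± 0.19, FDR = 0.435) and CIH (log2FC −0.045 ± 0.17, FDR = 0.847). That difference for Cdk6 was lost in 6 of 10 fits, without F 5XFAD CIH 2, 4 or 5 or F WT CIH 1, 2 or 3 (highest FDR = 0.0778). Cdk2 and Pmel, and Cdk4 and Tspan31, share exonic sequence on opposite strands.

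Cdkn2a (chr4:89274471-89294653 in GRCm38) had the largest log2FC of the members tested in each genotype comparison. It passed the filter only through 5XFAD, the group where it is high, with at most 1 WT library above 1 CPM (before TMM scaling) in any of these comparisons. It encodes p16Ink4a and p19Arf, from the 2 start sites printed above, and a count per gene does not separate them. Cdkn2a in NX females was 0.2897, 0.665, 0.717 and 0.992 CPM in WT and 1.46, 2.99, 4.796, 5.62 and 6.31 CPM in 5XFAD. Cdkn2a in CIH females was 0.399, 0.535, 0.567, 0.7199 and 0.926 CPM in WT and 2.22, 3.75, 4.78, 4.83 and 5.58 CPM in 5XFAD. For Cdkn2a in females, every 5XFAD library was above every WT library under both NX (log2FC 2.63 ± 0.48, FDR = 0.0175, or log2FC 3.11, FDR = 2.07e-04 without both) and CIH (log2FC 2.74 ± 0.30, FDR = 7.14e-06). Cdkn2a in NX males was 0, 0, 0.344, 0.355 and 0.9396 CPM in WT and 2.26, 2.53, 4.46, 6.02 and 6.73 CPM in 5XFAD. Cdkn2a in CIH males was 0.128, 0.263, 0.394, 0.438 and 0.976 CPM in WT and 0.495, 4.35, 4.94, 5.05 and 11.03 CPM in 5XFAD. For Cdkn2a in males, every 5XFAD library was above every WT library under NX (log2FC 3.77 ± 0.85, FDR = 0.00786), while the genotypes overlapped under CIH (log2FC 3.53 ± 0.65, FDR = 4.92e-04). Cdkn2a was near the limit of detection in WT, at 0 to 14 counts per M WT NX library, and its SE was largest in that comparison. A count of 0 allows up to 3 counts. M 5XFAD CIH 2, at 0.495 CPM, was the only male 5XFAD library within the WT range. The female NX call for Cdkn2a was lost without F WT NX 3, F WT NX 4 or F 5XFAD NX 5 (FDR = 0.0505 to 0.0647, log2FC 2.45 to 2.65), and held without F WT NX 1 (log2FC 2.90, FDR = 0.0374) or F 5XFAD NX 4 (log2FC 2.83, FDR = 2.35e-04).

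Cdkn1a (chr17:29090976-29100727 in GRCm38), the p21 inhibitor induced by p53, was called higher in 3 of the 4 genotype comparisons. Cdkn1a in NX females was 12.6, 15.5, 17.3 and 32.5 CPM in WT and 19.6, 34.97, 46.8, 47.9 and 59.5 CPM in 5XFAD. Cdkn1a in CIH females was 13.4, 14.1, 14.5, 16.9 and 20.6 CPM in WT and 27.99, 41.1, 43.9, 48.4 and 49.4 CPM in 5XFAD. For Cdkn1a in females, the genotypes overlapped under NX (log2FC 1.09 ± 0.34, FDR = 0.0598, or log2FC 1.63, FDR = 1.05e-04 without both), while every 5XFAD library was above every WT library under CIH (log2FC 1.42 ± 0.16, FDR = 6.10e-06). Cdkn1a in NX males was 8.99, 11.9, 13.1, 14.6 and 17.7 CPM in WT and 23.9, 28.3, 31.8, 41.7 and 44.7 CPM in 5XFAD. Cdkn1a in CIH males was 8.82, 9.95, 12.5, 13.1 and 13.2 CPM in WT and 28.8, 38.01, 42.4, 52.5 and 52.7 CPM in 5XFAD. For Cdkn1a in males, every 5XFAD library was above every WT library under both NX (log2FC 1.36 ± 0.21, FDR = 7.37e-04) and CIH (log2FC 1.90 ± 0.18, FDR = 1.02e-06). In NX females it was called without F WT NX 1 (log2FC 1.46, FDR = 0.0398) and without F 5XFAD NX 4 (log2FC 1.26, FDR = 0.0046). Cdkn2c, the p18Ink4c inhibitor of CDK4 and CDK6, was called in CIH males. Cdkn2c in NX females was 4.97, 5.91, 7.596 and 9.52 CPM in WT and 6.69, 7.84, 9.86, 10.3 and 10.6 CPM in 5XFAD. Cdkn2c in CIH females was 4.59, 5.29, 6.02, 6.299 and 6.55 CPM in WT and 7.76, 8.41, 10.3, 10.8 and 12.3 CPM in 5XFAD. For Cdkn2c in females, the genotypes overlapped under NX (log2FC 0.37 ± 0.21, FDR = 0.248, or log2FC 0.64, FDR = 0.0177 without both), while every 5XFAD library was above every WT library under CIH (log2FC 0.80 ± 0.15, FDR = 6.35e-04). Cdkn2c in NX males was 5.79, 6.95, 7.34, 7.99 and 8.49 CPM in WT and 8.66, 8.79, 12.8, 14.4 and 14.8 CPM in 5XFAD. Cdkn2c in CIH males was 3.21, 4.43, 5.13, 6.31 and 6.76 CPM in WT and 8.21, 10.9, 12.7, 17.1 and 17.5 CPM in 5XFAD. For Cdkn2c in males, every 5XFAD library was above every WT library under both NX (log2FC 0.70 ± 0.21, FDR = 0.0322) and CIH (log2FC 1.37 ± 0.25, FDR = 3.66e-04). The NX male difference for Cdkn2c was lost in 6 of 10 fits, without M 5XFAD NX 1, 2 or 3 or M WT NX 1, 2 or 3 (highest FDR = 0.0806). Cdkn1b, the p27 inhibitor of resting cells, was lower in 5XFAD under CIH in both sexes. Cdkn1b in NX females was 62.6, 63.7, 72.5 and 83.8 CPM in WT and 48.5, 53.03, 56.9, 57.6 and 60.4 CPM in 5XFAD. Cdkn1b in CIH females was 67.1, 67.3, 68.5, 68.6 and 69.7 CPM in WT and 45.3, 46.7, 47.2, 52.4 and 57.5 CPM in 5XFAD. For Cdkn1b in females, every 5XFAD library was below every WT library under both NX (log2FC −0.35 ± 0.11, FDR = 0.0563, or log2FC −0.31, FDR = 0.0202 without both) and CIH (log2FC −0.44 ± 0.066, FDR = 9.83e-05). Cdkn1b in NX males was 60.97, 61.2, 61.4, 61.8 and 70.2 CPM in WT and 46.4, 47.6, 53.7, 54.9 and 70.03 CPM in 5XFAD. Cdkn1b in CIH males was 66.8, 80.5, 85.3, 92.3 and 93.5 CPM in WT and 37.6, 47.5, 55.9, 66.3 and 71.7 CPM in 5XFAD. For Cdkn1b in males, the genotypes overlapped under both NX (log2FC −0.21 ± 0.13, FDR = 0.315) and CIH (log2FC −0.57 ± 0.16, FDR = 0.00819).

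E2f1, the factor that activates replication genes, was called higher in CIH males, with females close to the size limit. E2f1 in NX females was 2.66, 3.55, 3.59 and 8.49 CPM in WT and 5.31, 5.84, 5.995, 6.29 and 7.05 CPM in 5XFAD. E2f1 in CIH females was 2.68, 3.12, 3.27, 3.34 and 3.64 CPM in WT and 5.01, 5.61, 6.16, 6.97 and 7.81 CPM in 5XFAD. For E2f1 in females, the genotypes overlapped under NX (log2FC 0.41 ± 0.31, FDR = 0.377, or log2FC 0.88, FDR = 0.00571 without both), while every 5XFAD library was above every WT library under CIH (log2FC 0.99 ± 0.16, FDR = 1.85e-04). E2f1 in NX males was 2.45, 3.76, 4.57, 4.82 and 5.14 CPM in WT and 5.13, 5.21, 6.66, 6.79 and 8.55 CPM in 5XFAD. E2f1 in CIH males was 2.17, 2.94, 3.58, 3.91 and 4.99 CPM in WT and 3.67, 6.72, 7.95, 9.28 and 9.63 CPM in 5XFAD. For E2f1 in males, the genotypes overlapped under both NX (log2FC 0.64 ± 0.26, FDR = 0.117) and CIH (log2FC 1.09 ± 0.29, FDR = 0.00571). The male call for E2f1 was lost without M 5XFAD CIH 4 (log2FC 0.98) or M WT CIH 2 (log2FC 0.95), where its FDR was 0.0189 and 0.0164.

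None of the MCM helicase genes, which encode the ring that unwinds DNA at replication origins, was called in a genotype comparison, and the differences that reached FDR below 0.05 were all under CIH. Mcm5 in NX females was 11.7, 13.5, 16.1 and 17.5 CPM in WT and 13.7, 16.2, 16.6, 17.04 and 18.9 CPM in 5XFAD. Mcm5 in CIH females was 11.2, 12.1, 12.3, 12.8 and 14.7 CPM in WT and 14.6, 15.5, 15.8, 20.2 and 22.3 CPM in 5XFAD. For Mcm5 in females, the genotypes overlapped under both NX (log2FC 0.17 ± 0.14, FDR = 0.429, or log2FC 0.19, FDR = 0.277 without both) and CIH (log2FC 0.50 ± 0.13, FDR = 0.00491). Mcm5 in NX males was 15.4, 16.3, 16.7, 17.5 and 19.4 CPM in WT and 11.3, 17.4, 17.8, 18.5 and 19.5 CPM in 5XFAD. Mcm5 in CIH males was 9.95, 11.7, 11.7, 13.8 and 14.6 CPM in WT and 12.2, 15.5, 17.6, 17.6 and 18.6 CPM in 5XFAD. For Mcm5 in males, the genotypes overlapped under both NX (log2FC −0.012 ± 0.16, FDR = 0.975) and CIH (log2FC 0.41 ± 0.15, FDR = 0.0344). Mcm6 in NX females was 16.5, 20.3, 21.9 and 27.9 CPM in WT and 24.1, 24.1, 24.98, 25.4 and 26.4 CPM in 5XFAD. Mcm6 in CIH females was 15.98, 17.3, 17.5, 19.4 and 19.9 CPM in WT and 21.8, 25.9, 28.3, 28.6 and 29.8 CPM in 5XFAD. For Mcm6 in females, the genotypes overlapped under NX (log2FC 0.21 ± 0.13, FDR = 0.293, or log2FC 0.35, FDR = 0.0232 without both), while every 5XFAD library was above every WT library under CIH (log2FC 0.59 ± 0.093, FDR = 1.48e-04). Mcm6 in NX males was 18.1, 19.9, 21.2, 21.2 and 22.3 CPM in WT and 21.04, 21.7, 22.1, 24.6 and 28.4 CPM in 5XFAD. Mcm6 in CIH males was 14.6, 15.8, 18.99, 21.2 and 22.8 CPM in WT and 21.3, 23.9, 24.8, 25.4 and 29.99 CPM in 5XFAD. For Mcm6 in males, the genotypes overlapped under both NX (log2FC 0.20 ± 0.13, FDR = 0.34) and CIH (log2FC 0.43 ± 0.14, FDR = 0.0216). Mcm2 reached FDR below 0.05 in females alone and Mcm7 in males alone, and the difference between the sexes was not tested. Mcm2 in NX females was 11.7, 15.9, 16.04 and 20.1 CPM in WT and 14.1, 14.1, 15.2, 15.2 and 17.3 CPM in 5XFAD. Mcm2 in CIH females was 10.8, 12.9, 13.3, 13.5 and 16.97 CPM in WT and 14.6, 15.7, 17.6, 18.5 and 19.5 CPM in 5XFAD. For Mcm2 in females, the genotypes overlapped under both NX (log2FC −0.068 ± 0.15, FDR = 0.774, or log2FC −0.0017, FDR = 0.992 without both) and CIH (log2FC 0.36 ± 0.12, FDR = 0.021). Mcm2 in NX males was 15.04, 18.4, 18.7, 19.03 and 21.7 CPM in WT and 11.8, 13.6, 17.03, 18.4 and 21.96 CPM in 5XFAD. Mcm2 in CIH males was 9.51, 10.8, 13.1, 14.04 and 16.4 CPM in WT and 12.7, 15.4, 15.99, 16.4 and 19.9 CPM in 5XFAD. For Mcm2 in males, the genotypes overlapped under both NX (log2FC −0.16 ± 0.18, FDR = 0.619) and CIH (log2FC 0.34 ± 0.16, FDR = 0.0984). Mcm7 in NX females was 22.9, 23.6, 23.6 and 30.5 CPM in WT and 19.6, 23.7, 24.1, 24.2 and 27.9 CPM in 5XFAD. Mcm7 in CIH females was 20.9, 22.3, 25.4, 26.03 and 27.6 CPM in WT and 20.9, 21.8, 24.4, 24.4 and 26.1 CPM in 5XFAD. For Mcm7 in females, the genotypes overlapped under both NX (log2FC −0.069 ± 0.13, FDR = 0.724, or log2FC −0.041, FDR = 0.759 without both) and CIH (log2FC −0.04 ± 0.092, FDR = 0.745). Mcm7 in NX males was 28.9, 28.9, 33.2, 34.1 and 36.1 CPM in WT and 20.1, 22.03, 28.9, 31.2 and 31.7 CPM in 5XFAD. Mcm7 in CIH males was 17.5, 20.6, 21.02, 21.4 and 25.4 CPM in WT and 28.2, 28.4, 29.9, 30.1 and 33.6 CPM in 5XFAD. For Mcm7 in males, the genotypes overlapped under NX (log2FC −0.27 ± 0.15, FDR = 0.277), while every 5XFAD library was above every WT library under CIH (log2FC 0.51 ± 0.12, FDR = 0.00224).

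When each of 10 CIH libraries of males was left out in turn, FDR below 0.05 was lost by Mcm5 in 6 (without M 5XFAD CIH 3, 4 or 5 or M WT CIH 1, 3 or 4, highest FDR = 0.0921) and by Mcm6 in 3 (without M 5XFAD CIH 3 or M WT CIH 1 or 3, highest FDR = 0.0618). In CIH females Mcm2 lost it without F 5XFAD CIH 5 (FDR = 0.0566). Mcm3 and Mcm4 stayed above that limit in the 4 genotype comparisons. Mcm3 in NX females was 57.4, 61.9, 68.8 and 70.8 CPM in WT and 59.96, 63.2, 65.02, 69.01 and 70.7 CPM in 5XFAD. Mcm3 in CIH females was 55.3, 56.96, 57.8, 62.2 and 62.8 CPM in WT and 59.8, 60.6, 63.4, 65.1 and 69.7 CPM in 5XFAD. For Mcm3 in females, the genotypes overlapped under both NX (log2FC 0.021 ± 0.083, FDR = 0.876, or log2FC 0.083, FDR = 0.443 without both) and CIH (log2FC 0.13 ± 0.059, FDR = 0.0913). Mcm3 in NX males was 59.8, 61.9, 64.3, 66.8 and 72.8 CPM in WT and 52.6, 57.6, 59.02, 68.9 and 77.6 CPM in 5XFAD. Mcm3 in CIH males was 49.4, 50.3, 52.8, 56.8 and 59.4 CPM in WT and 54.8, 56.1, 58.1, 59.7 and 60.3 CPM in 5XFAD. For Mcm3 in males, the genotypes overlapped under both NX (log2FC −0.044 ± 0.12, FDR = 0.868) and CIH (log2FC 0.11 ± 0.088, FDR = 0.298). Mcm4 ranged over 14.9 to 22.1 CPM in females and 11.4 to 19.1 CPM in males, with log2FC from −0.27 (CIH males) to 0.17 (CIH females). Mcm7 also hosts Mir25 and Mir93 and overlaps Cops6 and Ap4m1 on the other strand.

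Pcna, the clamp loaded behind the helicase, was higher in 5XFAD in 3 of the 4 genotype comparisons at FDR below 0.05. Pcna in NX females was 57.6, 59.9, 71.8 and 84.6 CPM in WT and 59.8, 85.96, 94.9, 102 and 104 CPM in 5XFAD. Pcna in CIH females was 53.1, 54.7, 64.9, 65.9 and 67.6 CPM in WT and 81.4, 84.5, 99.2, 101 and 105 CPM in 5XFAD. For Pcna in females, the genotypes overlapped under NX (log2FC 0.39 ± 0.17, FDR = 0.14, or log2FC 0.61, FDR = 0.00123 without both), while every 5XFAD library was above every WT library under CIH (log2FC 0.64 ± 0.091, FDR = 6.71e-05). Pcna in NX males was 68.9, 74.8, 75.2, 79.9 and 84.4 CPM in WT and 81.8, 84.2, 108, 118 and 125 CPM in 5XFAD. Pcna in CIH males was 58.5, 58.5, 65.2, 65.9 and 68.6 CPM in WT and 99.7, 110.2, 119, 132 and 149.9 CPM in 5XFAD. For Pcna in males, the genotypes overlapped under NX (log2FC 0.43 ± 0.13, FDR = 0.0422), while every 5XFAD library was above every WT library under CIH (log2FC 0.96 ± 0.11, FDR = 6.87e-06). The NX male difference for Pcna was lost in 8 of 10 fits, all but those without M 5XFAD NX 4 or 5 (highest FDR = 0.101), and named pseudogenes of Pcna and of Tyms could share reads with them, as could those of Ccnb1, Ccnb2 and Ccnd3.

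Among the genes of nucleotide synthesis, Tyms, thymidylate synthase, was the only member besides Cdk1 and Cdkn2a to reach FDR below 0.05 in every genotype comparison. Tyms in NX females was 7.87, 8.17, 8.504 and 8.5998 CPM in WT and 9.63, 10.3, 10.3, 10.9 and 11.9 CPM in 5XFAD. Tyms in CIH females was 6.03, 7.98, 8.695, 8.77 and 8.85 CPM in WT and 10.7, 10.7, 11.1, 13.1 and 13.2 CPM in 5XFAD. For Tyms in females, every 5XFAD library was above every WT library under both NX (log2FC 0.36 ± 0.11, FDR = 0.0495, or log2FC 0.37, FDR = 0.0379 without both) and CIH (log2FC 0.56 ± 0.12, FDR = 0.00217). Tyms in NX males was 7.12, 7.22, 8.72, 9.13 and 10.4 CPM in WT and 10.9, 11.3, 11.7, 12.3 and 16.9 CPM in 5XFAD. Tyms in CIH males was 7.197, 7.83, 7.98, 8.995 and 9.82 CPM in WT and 13.5, 13.8, 13.8, 15.01 and 17.1 CPM in 5XFAD. For Tyms in males, every 5XFAD library was above every WT library under both NX (log2FC 0.57 ± 0.18, FDR = 0.0477) and CIH (log2FC 0.82 ± 0.14, FDR = 2.64e-04). Under NX the Tyms difference was lost in 8 of 9 female fits (each but the one without F 5XFAD NX 4, highest FDR = 0.123) and 8 of 10 male fits (each but those without M 5XFAD NX 5 or M WT NX 1, highest FDR = 0.114). Rrm1, the large subunit of ribonucleotide reductase, was higher in CIH females. Rrm1 in NX females was 22.9, 23.6, 25.6 and 27.1 CPM in WT and 25.5, 26.4, 28.98, 29.96 and 32.03 CPM in 5XFAD. Rrm1 in CIH females was 20.2, 22.2, 22.5, 23.3 and 25.7 CPM in WT and 25.3, 25.6, 27.7, 31.5 and 35.1 CPM in 5XFAD. For Rrm1 in females, the genotypes overlapped under both NX (log2FC 0.21 ± 0.089, FDR = 0.134, or log2FC 0.27, FDR = 0.0341 without both) and CIH (log2FC 0.36 ± 0.10, FDR = 0.0079). Rrm1 in NX males was 19.7, 20.002, 20.996, 23.6 and 24.9 CPM in WT and 23.3, 23.6, 25.5, 29.7 and 32.9 CPM in 5XFAD. Rrm1 in CIH males was 22.3, 23.3, 23.4, 23.5 and 25.5 CPM in WT and 25.1, 25.4, 25.5, 25.9 and 26.3 CPM in 5XFAD. For Rrm1 in males, the genotypes overlapped under both NX (log2FC 0.31 ± 0.14, FDR = 0.163) and CIH (log2FC 0.13 ± 0.095, FDR = 0.28). Rrm2, its small subunit, ranged over 0.985 to 4.31 CPM in females and 0 to 4.28 CPM in males and reached FDR below 0.05 in none of the 8 comparisons over all libraries.

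The mitotic kinases and checkpoint genes were low throughout, and 2 of 6 were called, both in CIH males, where 18.7% of all genes tested were called. Bub1 is a kinase of the spindle checkpoint, and Birc5 (survivin) belongs to the chromosomal passenger complex with Aurkb. Bub1 in NX females was 0.943, 1.02, 1.22 and 3.05 CPM in WT and 1.27, 2.26, 2.35, 2.65 and 4.48 CPM in 5XFAD. Bub1 in CIH females was 1.02, 1.19, 1.23, 1.48 and 1.59 CPM in WT and 1.49, 1.71, 1.75, 1.86 and 2.83 CPM in 5XFAD. For Bub1 in females, the genotypes overlapped under both NX (log2FC 0.73 ± 0.46, FDR = 0.284, or log2FC 1.00, FDR = 0.0291 without both) and CIH (log2FC 0.57 ± 0.25, FDR = 0.0678). Bub1 in NX males was 0, 1.14, 1.28, 1.38 and 1.62 CPM in WT and 1.76, 1.86, 2.16, 2.53 and 2.66 CPM in 5XFAD. Bub1 in CIH males was 0.77005, 0.789, 1.001, 1.05 and 1.78 CPM in WT and 1.79, 1.88, 2.703, 2.76 and 3.599 CPM in 5XFAD. For Bub1 in males, every 5XFAD library was above every WT library under both NX (log2FC 1.01 ± 0.67, FDR = 0.354) and CIH (log2FC 1.24 ± 0.37, FDR = 0.013). Birc5 in NX females was 1.74, 2.1005, 2.38 and 4.56 CPM in WT and 2.06, 2.398, 3.06, 3.22 and 4.25 CPM in 5XFAD. Birc5 in CIH females was 0.8998, 1.39, 1.84, 1.96 and 2.16 CPM in WT and 1.89, 1.96, 2.03, 2.04 and 3.53 CPM in 5XFAD. For Birc5 in females, the genotypes overlapped under both NX (log2FC 0.15 ± 0.34, FDR = 0.777, or log2FC 0.35, FDR = 0.298 without both) and CIH (log2FC 0.48 ± 0.28, FDR = 0.167). Birc5 in NX males was 1.42, 2.21, 2.41, 2.48 and 6.11 CPM in WT and 1.97, 4.26, 4.41, 5.66 and 6.02 CPM in 5XFAD. Birc5 in CIH males was 1.18, 1.47, 1.89, 2.05 and 3.13 CPM in WT and 1.77, 4.02, 4.93, 5.699 and 6.52 CPM in 5XFAD. For Birc5 in males, the genotypes overlapped under both NX (log2FC 0.60 ± 0.42, FDR = 0.388) and CIH (log2FC 1.25 ± 0.36, FDR = 0.011).

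Plk1, the most abundant of the 6, did not reach FDR below 0.05. Plk1 in NX females was 3.13, 3.18, 4.103 and 4.48 CPM in WT and 2.93, 3.19, 3.22, 4.19 and 7.8002 CPM in 5XFAD. Plk1 in CIH females was 2.22, 3.96, 4.07, 4.75 and 4.95 CPM in WT and 3.68, 3.72, 3.82, 3.98 and 5.25 CPM in 5XFAD. For Plk1 in females, the genotypes overlapped under both NX (log2FC 0.20 ± 0.32, FDR = 0.676, or log2FC −0.049, FDR = 0.875 without both) and CIH (log2FC 0.049 ± 0.21, FDR = 0.866). Plk1 in NX males was 2.803, 3.29, 3.73, 4.21 and 4.81 CPM in WT and 2.67, 3.73, 5.55, 6.58 and 8.42 CPM in 5XFAD. Plk1 in CIH males was 2.56, 3.31, 3.34, 3.44 and 5.19 CPM in WT and 3.11, 4.16, 5.48, 6.29 and 8.92 CPM in 5XFAD. For Plk1 in males, the genotypes overlapped under both NX (log2FC 0.51 ± 0.32, FDR = 0.325) and CIH (log2FC 0.65 ± 0.29, FDR = 0.0801). Aurkb, the kinase of the passenger complex, was higher in CIH females. Aurkb in NX females was 1.43, 1.74, 2.11 and 2.87 CPM in WT and 2.41, 3.32, 3.33, 3.52 and 4.77 CPM in 5XFAD. Aurkb in CIH females was 1.44, 1.82, 1.901, 2.06 and 2.16 CPM in WT and 2.09, 2.48, 2.63, 3.75 and 3.91 CPM in 5XFAD. For Aurkb in females, the genotypes overlapped under both NX (log2FC 0.77 ± 0.28, FDR = 0.0863, or log2FC 0.83, FDR = 0.0253 without both) and CIH (log2FC 0.67 ± 0.23, FDR = 0.0246). Aurkb in NX males was 0.477, 1.41, 1.47, 1.95 and 3.67 CPM in WT and 1.76, 3.25, 3.52, 3.59 and 8.41 CPM in 5XFAD. Aurkb in CIH males was 1.28, 1.43, 1.68, 2.13 and 3.56 CPM in WT and 2.63, 2.703, 2.83, 4.93 and 5.47 CPM in 5XFAD. For Aurkb in males, the genotypes overlapped under both NX (log2FC 1.18 ± 0.52, FDR = 0.15) and CIH (log2FC 0.88 ± 0.36, FDR = 0.0528). For Aurkb this was lost without F 5XFAD CIH 4, F 5XFAD CIH 5 or F WT CIH 3 (highest FDR = 0.0681). Aurka, of the spindle poles, ranged over 1.68 to 3.77 CPM in females and 1.28 to 5.59 CPM in males, and Bub1b, of the checkpoint, over 2.3995 to 7.79 CPM in females and 2.08 to 6.06 CPM in males, both with FDR at or above 0.05 in the 8 comparisons.

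Both genes that drive anaphase were higher in 5XFAD under CIH. Ube2c is the ubiquitin-conjugating enzyme of the anaphase-promoting complex and was called in both sexes. Ube2c in NX females was 0.927, 1.43, 2.495 and 4.12 CPM in WT and 1.87, 2.35, 2.52, 2.92 and 4.42 CPM in 5XFAD. Ube2c in CIH females was 0.854, 0.8998, 0.9799, 1.37 and 1.904 CPM in WT and 2.95, 3.04, 3.08, 3.48 and 4.85 CPM in 5XFAD. For Ube2c in females, the genotypes overlapped under NX (log2FC 0.32 ± 0.43, FDR = 0.618, or log2FC 0.57, FDR = 0.212 without both), while every 5XFAD library was above every WT library under CIH (log2FC 1.54 ± 0.27, FDR = 3.13e-04). Ube2c in NX males was 0, 1.88, 3.09, 3.26 and 3.96 CPM in WT and 2.89, 2.995, 6.04, 7.35 and 9.87 CPM in 5XFAD. Ube2c in CIH males was 1.22, 1.48, 1.69, 1.84 and 2.21 CPM in WT and 2.69, 3.63, 4.95, 7.05 and 8.24 CPM in 5XFAD. For Ube2c in males, the genotypes overlapped under NX (log2FC 1.25 ± 0.69, FDR = 0.257), while every 5XFAD library was above every WT library under CIH (log2FC 1.66 ± 0.33, FDR = 8.06e-04). Cdc20, its activator, was called in males. Cdc20 in NX females was 2.51, 3.07, 3.16 and 5.44 CPM in WT and 3.19, 3.39, 3.46, 3.71 and 5.705 CPM in 5XFAD. Cdc20 in CIH females was 2.08, 2.48, 2.68, 2.73 and 2.999 CPM in WT and 3.16, 3.46, 3.72, 4.07 and 4.44 CPM in 5XFAD. For Cdc20 in females, the genotypes overlapped under NX (log2FC 0.14 ± 0.28, FDR = 0.758, or log2FC 0.23, FDR = 0.388 without both), while every 5XFAD library was above every WT library under CIH (log2FC 0.55 ± 0.17, FDR = 0.0154). Cdc20 in NX males was 2.18, 2.75, 2.86, 3.83 and 4.94 CPM in WT and 3.097, 5.06, 5.09, 6.54 and 6.89 CPM in 5XFAD. Cdc20 in CIH males was 1.99, 2.26, 2.35, 2.86 and 2.88 CPM in WT and 3.899, 4.601, 5.79, 5.84 and 5.89 CPM in 5XFAD. For Cdc20 in males, the genotypes overlapped under NX (log2FC 0.69 ± 0.31, FDR = 0.152), while every 5XFAD library was above every WT library under CIH (log2FC 1.08 ± 0.23, FDR = 0.00145). Ube2c and Tnnc2, and Cdc20 and Elovl1, share exonic sequence on opposite strands.

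Of the spindle and kinetochore genes, Cenpe and Kif11, both mitotic kinesins, were called in 2 comparisons each. Cenpe in NX females was 1.97, 2.31, 3.44 and 6.17 CPM in WT and 3.95, 4.98, 5.396, 5.57 and 6.46 CPM in 5XFAD. Cenpe in CIH females was 1.96, 1.96, 2.3995, 2.78 and 3.13 CPM in WT and 4.53, 4.88, 5.86, 6.36 and 6.86 CPM in 5XFAD. For Cenpe in females, the genotypes overlapped under NX (log2FC 0.60 ± 0.33, FDR = 0.228, or log2FC 0.94, FDR = 0.0128 without both), while every 5XFAD library was above every WT library under CIH (log2FC 1.23 ± 0.19, FDR = 1.00e-04). Cenpe in NX males was 1.12, 1.21, 1.304, 2.21 and 3.102 CPM in WT and 1.54, 2.89, 4.95, 5.49 and 5.86 CPM in 5XFAD. Cenpe in CIH males was 1.28, 1.67, 1.95, 2.31 and 2.38 CPM in WT and 2.63, 3.55, 3.76, 4.18 and 5.999 CPM in 5XFAD. For Cenpe in males, the genotypes overlapped under NX (log2FC 1.22 ± 0.44, FDR = 0.0767), while every 5XFAD library was above every WT library under CIH (log2FC 1.07 ± 0.30, FDR = 0.00854). Kif11 in NX females was 2.1005, 2.38, 3.01 and 6.36 CPM in WT and 3.62, 3.86, 4.85, 6.99 and 7.11 CPM in 5XFAD. Kif11 in CIH females was 2.11, 2.3995, 2.79, 3.25 and 3.396 CPM in WT and 4.76, 4.77, 4.93, 4.94 and 8.28 CPM in 5XFAD. For Kif11 in females, the genotypes overlapped under NX (log2FC 0.60 ± 0.37, FDR = 0.272, or log2FC 0.95, FDR = 0.0221 without both), while every 5XFAD library was above every WT library under CIH (log2FC 1.00 ± 0.21, FDR = 0.00128). Kif11 in NX males was 1.48, 1.62, 1.79, 2.36 and 2.53 CPM in WT and 3.02, 3.87, 4.93, 5.09 and 6.12 CPM in 5XFAD. Kif11 in CIH males was 1.41, 2.51, 3.05, 3.25 and 4.59 CPM in WT and 2.14, 2.19, 4.63, 4.68 and 5.399 CPM in 5XFAD. For Kif11 in males, every 5XFAD library was above every WT library under NX (log2FC 1.23 ± 0.30, FDR = 0.0135), while the genotypes overlapped under CIH (log2FC 0.36 ± 0.36, FDR = 0.418). The Kif11 call in CIH females lay at the size limit and was lost without F 5XFAD CIH 4 (log2FC 0.81), F WT CIH 3 (0.95) or F WT CIH 5 (0.91). The Cenpe call in CIH males was lost without M 5XFAD CIH 3 (log2FC 0.88) or M WT CIH 2 (0.95).

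Tpx2, a spindle assembly factor, was higher in 5XFAD at FDR below 0.05 in 3 comparisons. Tpx2 in NX females was 1.89, 2.15, 2.32 and 7.497 CPM in WT and 3.79, 3.797, 4.002, 6.12 and 6.23 CPM in 5XFAD. Tpx2 in CIH females was 2.06, 2.11, 2.46, 3.45 and 3.55 CPM in WT and 3.31, 4.34, 4.83, 5.14 and 5.25 CPM in 5XFAD. For Tpx2 in females, the genotypes overlapped under both NX (log2FC 0.46 ± 0.43, FDR = 0.469, or log2FC 1.05, FDR = 0.00769 without both) and CIH (log2FC 0.76 ± 0.21, FDR = 0.00897). Tpx2 in NX males was 1.98, 2.24, 2.75, 3.26 and 3.34 CPM in WT and 4.15, 4.65, 5.06, 5.55 and 6.04 CPM in 5XFAD. Tpx2 in CIH males was 1.93, 2.12, 2.25, 3.05 and 3.21 CPM in WT and 2.17, 4.18, 4.402, 4.84 and 5.45 CPM in 5XFAD. For Tpx2 in males, every 5XFAD library was above every WT library under NX (log2FC 0.91 ± 0.26, FDR = 0.0287), while the genotypes overlapped under CIH (log2FC 0.75 ± 0.29, FDR = 0.0428). The male differences for Tpx2 were lost in 6 of 10 fits under NX (without M 5XFAD NX 2, 3 or 4 or M WT NX 1, 4 or 5, highest FDR = 0.0734) and 8 under CIH (each but those without M 5XFAD CIH 3 or M WT CIH 5, highest FDR = 0.101). Cenpf, a kinetochore protein, ranged over 4.87 to 14.96 CPM in females and 2.6996 to 9.65 CPM in males and had FDR at or above 0.05 throughout.

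Summed over the 31 cycling members, the genotypes stood apart in 3 of the 4 pairs of groups. The sums were 298, 328, 328 and 468 CPM in F WT NX and 402, 406, 416, 425 and 436 CPM in F 5XFAD NX. They were 288, 295, 297, 331 and 341 CPM in F WT CIH and 379, 389, 409.7, 453 and 469 CPM in F 5XFAD CIH. F WT NX 1, the highest of its group, was the only WT female library not below every 5XFAD one. In males the sums were 322, 328, 341, 346 and 373 CPM in WT NX and 376, 426, 457, 459 and 461 CPM in 5XFAD NX. Under CIH they were 275, 297, 298, 303 and 322 CPM in WT and 399.6, 416, 434, 460.2 and 495 CPM in 5XFAD males. These sums are led by abundant replication genes, the 6 helicase genes taking 137 to 188 CPM of them in F WT NX. The helicase sums alone overlapped between the genotypes under NX, at 155 to 171 CPM in F 5XFAD NX. In NX males they were 161 to 183 CPM in WT and 136 to 178 CPM in 5XFAD. Under CIH they overlapped in females (136 to 159 in WT, 152 to 183 in 5XFAD) but not in males (123 to 150 and 151 to 164).

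**Figure D4:**
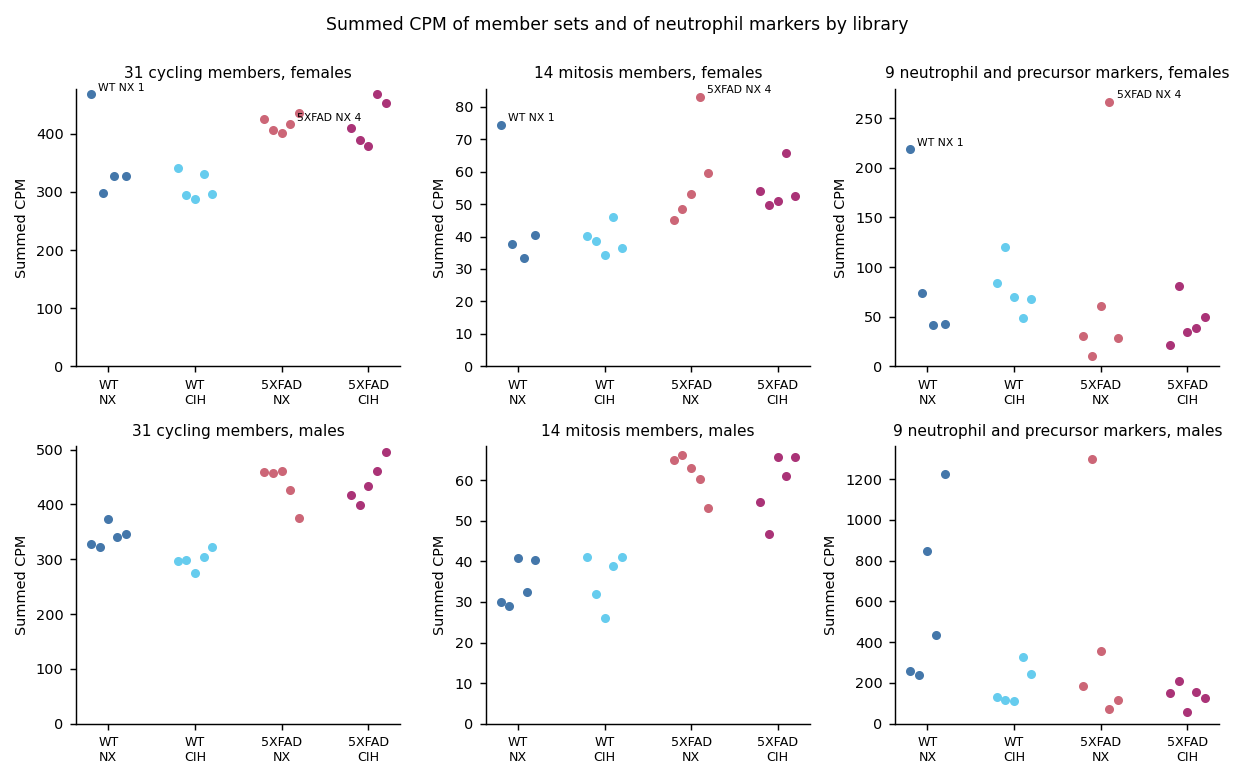
Summed CPM per library (points) by group for the 31 cycling members, the 14 mitosis members (Ccnb1, Ccnb2, the 6 mitotic kinase and checkpoint genes, Cdc20, Ube2c and the 4 spindle and kinetochore genes) and 9 neutrophil and granulocyte precursor markers, females above and males below, with axes from 0. F WT NX 1 and F 5XFAD NX 4 are the highest of their groups for both mitosis genes and neutrophil markers, and male neutrophil sums reach 1299 CPM.

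The comparisons of CIH with NX within a genotype share libraries with those above and asked whether hypoxia itself moved the cycle genes. In WT males, 5 replication genes (Mcm2, Mcm3, Mcm5, Mcm7 and Pcna) and Cdk4 were lower under CIH, and Cdk2 and Cdkn1b higher, at FDR below 0.05. Of 40 members tested, 6 were thus lower and 2 higher, where 15% of all genes were lower and 13.6% higher. These 8 are 20% of the members, below the 28.6% of all genes, and the 15% that were lower equal the share of all genes. None was called with the size limit (2.51% of all genes were), as also with the likelihood ratio test and DESeq2. Mcm7 in WT males was 28.9 to 36.1 CPM under NX and 17.5 to 25.4 CPM under CIH, without overlap (log2FC −0.60 ± 0.12, FDR = 0.00157). Mcm2 in WT males was 15.04 to 21.7 CPM under NX and 9.51 to 16.4 CPM under CIH, with overlap (log2FC −0.54 ± 0.16, FDR = 0.0179). Mcm5 in WT males was 15.4 to 19.4 CPM under NX and 9.95 to 14.6 CPM under CIH, without overlap (log2FC −0.47 ± 0.13, FDR = 0.0168). Mcm4 and Mcm6, the other helicase genes, did not reach FDR below 0.05 (log2FC 0.048 and −0.13). Mcm3 in WT males was 59.8 to 72.8 CPM under NX and 49.4 to 59.4 CPM under CIH, without overlap (log2FC −0.28 ± 0.087, FDR = 0.0256). Pcna in WT males was 68.9 to 84.4 CPM under NX and 58.5 to 68.6 CPM under CIH, without overlap (log2FC −0.27 ± 0.085, FDR = 0.0252). Cdk4 in WT males was 75.996 to 107 CPM under NX and 60.9 to 78.7 CPM under CIH, with overlap (log2FC −0.41 ± 0.10, FDR = 0.00819). On the other side stood Cdk2 and the p27 gene Cdkn1b. Cdk2 in WT males was 29.5 to 38.02 CPM under NX and 45.7 to 54.2 CPM under CIH, without overlap (log2FC 0.52 ± 0.10, FDR = 0.0012). Cdkn1b in WT males was 60.97 to 70.2 CPM under NX and 66.8 to 93.5 CPM under CIH, with overlap (log2FC 0.41 ± 0.10, FDR = 0.00571). Of 9 neutrophil and granulocyte precursor markers, 6 were called lower in WT CIH than in WT NX males in the same fit, as were 3 of 4 monocyte markers, which summed to 40.98 to 103 CPM in WT NX and 28.1 to 49.4 CPM in WT CIH. The 6 erythroid markers summed to 63.6 to 234 and 48.2 to 118 CPM. The part of these markers in these differences was not tested.

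These 8 differences depended on the fit. With all 4 male groups in one fit, none kept an FDR below 0.05 (Mcm7 log2FC −0.61, FDR = 0.0568, and Cdk2 log2FC 0.52, FDR = 0.057). Mcm2 lost it without M WT CIH 3, Mcm5 without M WT CIH 3, Pcna without M WT CIH 2 or M WT NX 4, and Mcm3 without M WT CIH 3, 4 or 5 or M WT NX 3 (highest FDR = 0.0712). With library size alone as the scale, 3 members were higher and 3 lower, against 18.8% higher and 10.4% lower of all genes. Mki67 and Top2a differed by log2FC 0.29 and 0.25 between the WT groups, with FDR = 0.352 and 0.439. Without M WT NX 1, Cdk1 reached log2FC −0.79 (FDR = 0.0283), against −0.59 (FDR = 0.171) with it.

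**Figure D5:**
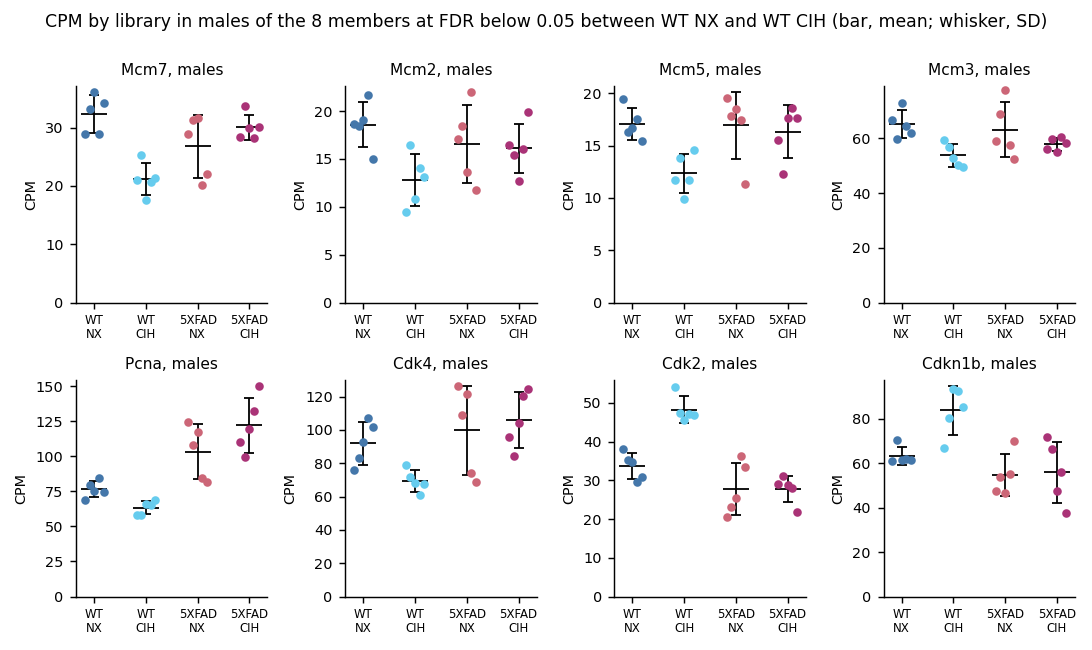
CPM in every male library (points) of the 8 members at FDR below 0.05 between WT NX and WT CIH, with group mean (bar), SD (whisker) and axes from 0. They are 20% of the members, where 28.6% of all genes reached that FDR, and Mcm7 is lower and Cdk2 higher in each WT CIH library than in any WT NX library, and the 5XFAD groups overlap for every gene shown.

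In WT females, no member of 40 was called between NX and CIH by the quasi-likelihood test, the likelihood ratio test or DESeq2, and 1, 2 and 2 had an unadjusted p below 0.05 in these tests (3.87% of all genes in the first). The median log2FC of the members was −0.25 with F WT NX 1 and −0.021 without it. Mki67 read log2FC −0.45 ± 0.31, FDR = 0.96 and Top2a log2FC −0.50 ± 0.31, FDR = 0.96, and without F WT NX 1 they read log2FC 0.043, FDR = 1 and log2FC 0.058, FDR = 1. In 5XFAD females none of 42 was called by the 3 tests, 1, 1 and 1 had an unadjusted p below 0.05 (3.22% of all genes in the first), and member log2FC ranged from −0.43 to 0.59 with a median of 0.0057. In 5XFAD males none of 42 was called by the 3 tests either, 2, 2 and 2 had an unadjusted p below 0.05 (3.3%), and log2FC ranged from −0.53 to 0.59 with a median of −0.038. Top2a, at 12.7, 14.2, 17.5, 17.6 and 18.6 CPM in NX and 8.02, 11.3, 12.1, 13.4 and 13.98 CPM in CIH males of this genotype, read log2FC −0.46 ± 0.19, FDR = 0.995. Mki67 read log2FC −0.32 ± 0.19, FDR = 0.995 there and log2FC −0.20 ± 0.12, FDR = 0.998 in 5XFAD females. Cdk1 read log2FC 0.20 ± 0.26, FDR = 0.995 in males and log2FC 0.33 ± 0.21, FDR = 0.998 in females.

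Whether CIH acted differently in the 2 genotypes was tested as an interaction. No member reached FDR below 0.05 in either sex by the quasi-likelihood test. An unadjusted p below 0.05 was found for 5 of 42 members in females (11.9%, against 3.78% of all genes tested), 0 without F WT NX 1, and for 6 of 42 in males (14.3%, against 24.4%). In males the lowest p was that of Mcm7, where the CIH difference was higher in 5XFAD than in WT by log2FC 0.77 ± 0.19, FDR = 0.117, and the likelihood ratio test gave it an FDR of 0.0425 and DESeq2 0.0249. Pcna (log2FC 0.51 ± 0.18, FDR = 0.123) reached FDR = 0.0472 with DESeq2 alone. Top2a and Mki67 gave interactions of log2FC −0.70 ± 0.29, FDR = 0.15 and log2FC −0.61 ± 0.30, FDR = 0.215 in males. In females the median interaction of the members was 0.26 with F WT NX 1 and −0.061 without it. The larger number of calls under CIH than under NX was therefore not shown to be a difference between the treatments.

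The same comparisons were counted over 132 other cell cycle genes, 41 regulators, 38 of S phase and 53 of mitosis. Called were 1 higher and 0 lower of 128 tested in NX females, 12 higher and 1 lower of 129 tested in CIH females, 3 higher and 1 lower of 128 tested in NX males and 15 higher and 2 lower of 126 tested in CIH males, with median log2FC over those tested of 0.17, 0.31, 0.30 and 0.24. In either direction these were 0.781%, 10.1%, 3.12% and 13.5% of those tested. That is below the 5.99%, 13%, 8.25% and 18.7% of all genes called in the same comparisons. Of all genes, 4.4%, 8.83%, 5.94% and 11.8% were called higher. The mitosis list alone was called at 1.89%, 13.2%, 7.69% and 19.6%. Over all 3 lists at FDR below 0.05, 45 were higher and 16 lower in CIH females, against 26.2% and 25.7% of all genes. In CIH males 30 were higher and 15 lower, against 25.3% and 23.7%. NX females had 2 and 4 (7.26% and 6.61%) and NX males 11 and 8 (10.4% and 7.37%). Gas2l3, a cytoskeletal linker listed with mitosis, had the largest rise in each, with log2FC 2.54 ± 0.48, FDR = 0.0185 in NX females, log2FC 3.07 ± 0.13, FDR = 1.47e-09 in CIH females, log2FC 2.83 ± 0.23, FDR = 2.98e-06 in NX males and log2FC 2.91 ± 0.16, FDR = 6.39e-09 in CIH males. The stress-induced genes Gadd45b and Gadd45a were higher in 5XFAD under CIH, with log2FC 1.89 ± 0.42, FDR = 0.00206 and log2FC 1.88 ± 0.24, FDR = 2.37e-05 in females and log2FC 2.62 ± 0.34, FDR = 2.18e-05 and log2FC 2.26 ± 0.28, FDR = 1.64e-05 in males. Ung, a uracil-DNA glycosylase, was also higher in 5XFAD under CIH, with log2FC 1.55 ± 0.36, FDR = 0.00305 in females and log2FC 2.08 ± 0.42, FDR = 0.00102 in males. In NX males Ect2, an exchange factor of cytokinesis (log2FC 1.90 ± 0.41, FDR = 0.00618), and Hmmr, a spindle-binding protein (log2FC 1.70 ± 0.46, FDR = 0.0225), were higher in 5XFAD and Espl1, the separase (log2FC −1.07 ± 0.14, FDR = 1.87e-04), was lower. Between WT NX and WT CIH males, 3 higher and 1 lower of 126 tested were called (3.17%, against 2.51% of all genes), with Ect2 (log2FC 1.63 ± 0.41, FDR = 0.00844), the kinesin Kif20b (log2FC 1.22 ± 0.28, FDR = 0.00443) and the condensin subunit Smc2 (log2FC 1.04 ± 0.20, FDR = 0.00143) higher and Gins2 (log2FC −1.03 ± 0.28, FDR = 0.013), which works with the helicase, lower under CIH. No other cell cycle gene was called between treatments in WT females, 5XFAD females or 5XFAD males, where 4, 1 and 3 had an unadjusted p below 0.05 in edgeR's quasi-likelihood test.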

How the data were processed

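Gene counts and FPKM values of 39 libraries were analysed as deposited by the authors, in separate female and male tables. Per the submitters' processing notes, reads were aligned to GRCm38 with HISAT2; its version and the counting tool are not given in the sources used here, and neither is strandedness. The deposited counts are whole numbers without normalization, and the deposited FPKM values, which are scaled by gene length and library total, served for levels between genes and for limma. Groups came from the labels. Each pair of groups was tested on the counts with edgeR 4.0.16 in R 4.3.3 (TMM, quasi-likelihood F test, Benjamini-Hochberg over all genes tested), and the interaction over the 4 groups of a sex. CPM shown were scaled over all libraries of a sex. Alternatives were edgeR's likelihood ratio test, DESeq2 1.42.0, library size alone, no filter, FDR alone, limma 3.58.1 on log2(FPKM + 0.1), the replicate block, all 4 groups in one fit, and each library left out. The scripts were tested on simulated counts. Members and lists were chosen with earlier results of these data known. Values in every library are given for members at FDR below 0.05 in at least 1 comparison and for the most abundant member of each role, and other members by range. Of other cell cycle genes, the 4 largest calls per comparison are named. Within groups, 76 pairs of libraries were compared, and none agreed within sampling noise.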

Additional observations from a re-analysis of the deposited data

Results flagged for a closer look

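Single libraries far from the rest of their group were looked for with Dixon's test in 128 groups of 4 or 5 libraries, 8 for each of the 16 members called at least once, and 13 were found. Chance flags about 1 in 20 groups. In F WT NX 1, 5 members stood apart. Mki67 was 33.7 CPM against 11.99 to 13.7 in the other 3 libraries, Top2a 21.4 against 7.37 to 7.79, Cdk1 6.62 against 3.05 to 3.38, E2f1 8.49 against 2.66 to 3.59 and Bub1 3.05 against 0.943 to 1.22. Cdc20 in F 5XFAD NX 4 was 5.705 CPM against 3.19 to 3.71.

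Among the F 5XFAD CIH libraries, Bub1 was 2.83 CPM in replicate 5 against 1.49 to 1.86, Birc5 3.53 in replicate 1 against 1.89 to 2.04, and replicate 4 had Ube2c at 4.85 against 2.95 to 3.48 and Kif11 at 8.28 against 4.76 to 4.94. In males, Cdk1 was 25.6 CPM in M 5XFAD CIH 5 against 12.97 to 16.4, Bub1 1.78 in M WT CIH 5 against 0.77005 to 1.05, and Birc5 6.11 in M WT NX 3 against 1.42 to 2.48. M WT NX 3 also had the second highest neutrophil marker sum of its group, 849 CPM, and its part in the Birc5 value was not tested.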

How the results depend on the processing

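Counts of called members changed by more than 1.5 times as follows. In WT NX vs 5XFAD NX females the 2 calls became 1 with library size alone and 1 with limma on FPKM (Cdkn2a, without Cdk1), 0 with the replicate block (Cdk1 log2FC 0.95, FDR = 0.0957, Cdkn2a log2FC 2.38, FDR = 0.0845) and 6 without both F WT NX 1 and F 5XFAD NX 4 (added after the data were seen), and 0 to 7 with 1 library left out: 7 without F WT NX 1, 1 without F 5XFAD NX 1, 2 or 3 or F WT NX 2, and 0 without F 5XFAD NX 5 or F WT NX 3 or 4. With FDR alone the counts were 26 in CIH females, 10 in NX males, 25 in CIH males and 8 between WT NX and WT CIH males. Library size alone gave 7 calls in CIH males, 6 of the 13 above and Cdk2, lower at log2FC −1.15. Without F WT NX 1, the WT NX vs WT CIH values of Mki67, Top2a and Cdk1 in females turned to 0.043, 0.058 and 0.052, from as low as −0.61, −0.66 and −0.43 with another library left out, and the interactions of Mki67 and Top2a to −0.25 and −0.17, from as high as 0.39 and 0.54. The cause was not tested. Of 92 values of single members (86 with 4 groups in one fit), significance was lost in 33 with library size alone, 17 with limma, 16 without the filter, 14 with 4 groups in one fit, 13 with the replicate block, 1 with the likelihood ratio test and 0 with DESeq2, and none changed sign. Over 57 same-numbered pairs the correlation of deviations from the group mean was −0.49 to 0.35, and 18 exceeded 0.1. Differently numbered pairs were not compared, so these values cannot tell whether replicate numbers pair the libraries. The lowest member count was 0 to 14 per library across groups.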
